A study of Mus musculus with 9 samples.

Results

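The comparison described here set microglia of mice with a neuromyelitis optica-like lesion and clodronate treatment (NMO+CL, 3 libraries) against microglia of untreated mice (Normal, 3 libraries), over every gene symbol of the deposited count files. These are 6 of the 9 microglia libraries analysed here, and libraries were taken by their group labels. All animals were female wild-type C57BL/6N mice 12 weeks old. In the lesion model, antibody from patients against the astrocyte water channel aquaporin 4 (NMO-IgG) was injected together with human complement into the right striatum. NMO+CL mice also received liposomes loaded with clodronate, a drug that kills the phagocytes which take it up, by intraperitoneal injection 6 h before the lesion. Normal mice were untreated, and the 3 remaining libraries (NMO) came from mice with the lesion and without clodronate. Brains were taken on day 1, and each library was a pool of cells from 3 mice. Cells positive for CD45, CD11b and P2ry12 were sorted and sequenced from the 3′ ends of their transcripts.

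The NMO+CL and Normal mice differed in the needle injection, the antibody, the complement, the liposomes and the clodronate together. These cannot be told apart in this contrast. For this reason NMO levels are given for the genes shown by library, and the test of NMO+CL against NMO from the same fit for the named genes that passed it and for some that did not. Both contrasts use the same NMO+CL libraries. The sort also used the protein P2ry12, whose transcript differed between the groups. In bulk libraries, fewer cells of a type and less RNA per cell cannot be told apart. The labels give separate pools, so the spread between libraries holds differences between pools of mice as well as handling.

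Microglia are the resident macrophages of the brain. In the healthy adult they carry a characteristic set of genes, often called homeostatic, that includes purine receptors such as P2ry12, the lectin Siglech and transcription factors such as Sall1, and this set depends on transforming growth factor beta. When tissue is injured, microglia retract their processes, take up debris, and turn on genes for inflammation, scavenging and growth. In neuromyelitis optica, antibody bound to aquaporin 4 on astrocyte end-feet fixes complement and kills astrocytes, and blood monocytes and neutrophils enter the lesion.

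The sorted cells carried the transcripts that define the label. The summed level of 10 microglial markers was 34170 to 38815 CPM (reads divided by the scaled library size and multiplied by 1e6) in Normal and 19906 to 27559 CPM in NMO+CL, and all 10 had reads in every library. Of the 10 markers, 7 were called lower, and 4 without NMO+CL replicate 2. Tmem119 read 2504, 3451 and 3374 CPM in Normal, 2774, 2778 and 3419 in NMO and 2265, 2118 and 3093 in NMO+CL, and it was not called (log2 fold change -0.32, adjusted p = 0.319). Csf1r, the receptor on which microglia depend for survival, was not called either (log2 fold change -0.53, adjusted p = 0.121), but was called without NMO+CL replicate 3 (a log2 fold change of -0.82 with adjusted p = 0.00694). The genes of the sorted surface proteins CD45 (Ptprc, 0.33) and CD11b (Itgam, -0.29) did not pass the test (adjusted p = 0.318 and 0.453). Ly6c2 stood at 4.78, 0 and 0.337 CPM in Normal, 5.53, 2.39 and 5.6 in NMO and 5.11, 2.43 and 3.84 in NMO+CL, so this marker of inflammatory monocytes stayed near the bottom of the measured range in every library. Without Normal replicate 1, 2 reads of Ly6c2 were left in Normal against 74 in NMO+CL, and the ratio was 24.2 (exact 95% interval 6.46 to 203). Ly6g was not analysed here. Library totals ran from 5788234 to 7837219 reads, and the test of NMO+CL against Normal totals gave p = 0.9 (exact permutation test, two-sided). These totals include Rn45s, the precursor of ribosomal RNA. It took 30.98, 22.35 and 16.08% of the reads in Normal and 26.7, 20.7 and 23.5% in NMO+CL. More genes had at least 1 read in Normal (13788 ± 457, SD, n = 3) than in NMO+CL (12717 ± 244.5, SD, n = 3), with exact permutation p = 0.1, which is the smallest value that 3 libraries against 3 allow.

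Of 12292 genes tested, 589 were higher in NMO+CL than in Normal and 545 were lower (edgeR quasi-likelihood test, two-sided, Benjamini-Hochberg adjusted p under 0.05, the rule behind every call below). These are 4.79% and 4.43% of the tested genes. The 3 libraries of each group did not overlap for 582 of the genes called higher and for 537 of those called lower. Over all tested genes, 13.8% had every NMO+CL library above every Normal library and 14.9% had every NMO+CL library below. The median log2 fold change of all tested genes was -0.01, and the median size of the change was 1.27 among genes called higher and 1.33 among those called lower. Changes of at least 2 on the log2 scale were seen for 104 genes called higher and for 125 called lower. Against NMO, 0.529% of the tested genes were higher and 1.07% lower in NMO+CL. Of the genes that differed from Normal, 57 of the 589 were also higher than in NMO and 127 of the 545 were also lower.

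The number of calls depended on the test and on which libraries were in the fit. A test against a change of 1.5-fold, rather than against no change, called 218 genes higher and 200 lower. The genes called higher numbered 384, 388 and 346 without Normal replicates 1, 2 and 3, and 335 without NMO+CL replicate 2. The genes called lower numbered 351 and 303 without Normal replicates 1 and 3, and 314 without NMO+CL replicate 2. Of all 1134 calls, 257 higher and 218 lower stayed under the threshold in each of 16 alternative fits that gave them an adjusted p. These fits included leaving out each of the 9 libraries. Calls lost or gained by a named gene in a fit without 1 library are given below together with the library.

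**Figure D1:**
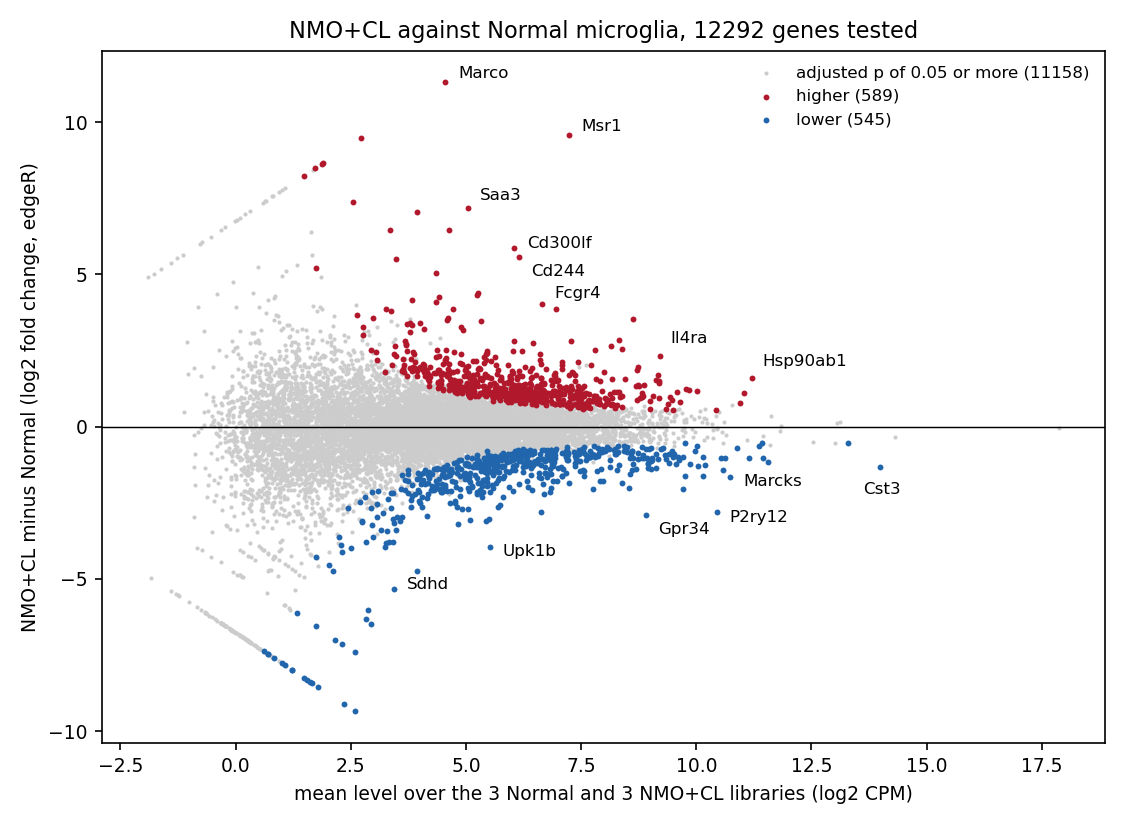
Mean level of each of the 12292 tested genes over the Normal and NMO+CL libraries (x axis, log2 scale of CPM) against its log2 fold change, NMO+CL over Normal (y axis). Coloured points are the 589 genes called higher and the 545 called lower, grey points the rest, and the diagonal streaks are genes with no read in any library of 1 group.

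Genes were then read by the groups to which they belong. By count, the groups with most calls in the higher direction were those of making and folding proteins. Ribosome biogenesis, ribosomal proteins, translation, chaperones and the endoplasmic reticulum stress response together held 327 tested genes, of which 115 were called higher and 2 lower. The homeostatic genes of microglia moved the other way. Of 53 tested, 30 were called lower and none higher. In a list of 39 taken from general knowledge of microglia, 20 were lower. In the list of 14 that the study itself picked from these libraries, 10 were lower. Neither count is independent evidence of its direction, since the list of 39 was also written with results of these data known. The other immune and metabolic groups held fewer calls in the higher direction and often had members in both directions. The lists differ in size, and the order by share was another. Of 17 glucocorticoid genes 6 were called higher, against 14 of 78 ribosomal proteins. Outside every list lay 10852 tested genes, with 367 called higher and 459 lower.

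**Figure D2:**
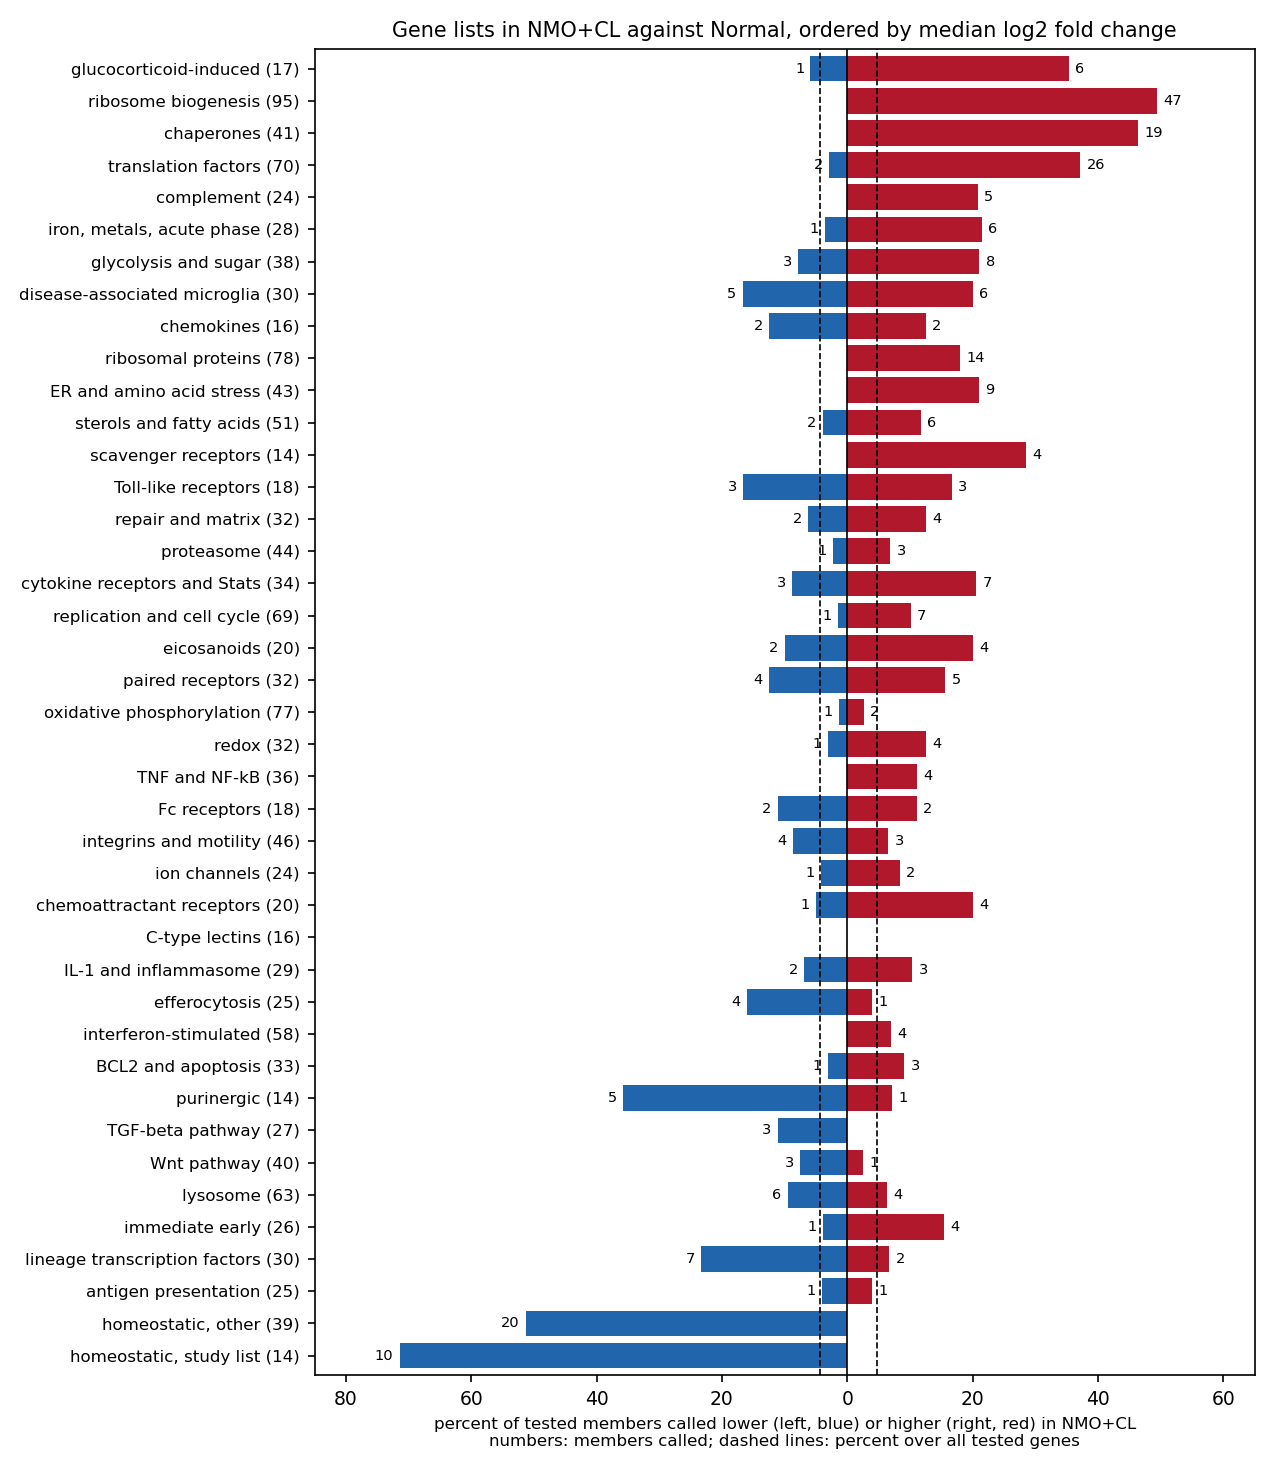
Percent of the tested members of 41 gene lists that were called higher (to the right) or lower (to the left) in NMO+CL against Normal. Dashed lines mark the share over all 12292 tested genes, 4.79% higher and 4.43% lower, and ribosome biogenesis, chaperones and translation reach farthest to the right and the homeostatic lists farthest to the left.

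P2ry12, Gpr34 and Siglech had the smallest p-values of the homeostatic set. P2ry12 was at 2608, 2055 and 2665 CPM in Normal, 1756, 1558 and 1629.5 in NMO and 449, 266 and 344 in NMO+CL. P2ry12, the ADP receptor that steers microglial processes towards injury, lies on chromosome 3, 59216272 to 59262871, minus strand (GENCODE M21, GRCm38). Every NMO+CL library was below every NMO library, and every NMO library below every Normal library (log2 fold change -2.79, SE 0.20, adjusted p = 4.62e-07). Gpr34 measured 971, 684 and 871 CPM in Normal, 613, 564 and 579 in NMO and 112, 83.1 and 143 in NMO+CL. This receptor for lysophosphatidylserine was likewise lowest in all 3 NMO+CL libraries (log2 fold change -2.90, SE 0.22, adjusted p = 7.18e-07). Siglech lay at 1236, 1432 and 1403 CPM in Normal, 715, 811 and 693 in NMO and 324, 273 and 392 in NMO+CL. Siglec-H, a sialic acid-binding lectin of microglia, fell in the same stepwise order of libraries (log2 fold change -2.04, SE 0.18, adjusted p = 4.17e-06). Against NMO, the log2 fold changes of P2ry12, Gpr34 and Siglech were -2.22 with adjusted p = 1.73e-05, -2.37 with adjusted p = 1.73e-05 and -1.16 with adjusted p = 0.00291.

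The 250 bases before the start of P2ry12 and of Siglech are printed, since both genes were called lower in each of the alternative fits and both windows hold the same pair of motifs. The sequences are those of RefSeq for GRCm38.p6, at chr3:59262986-59263235 on the minus strand and chr7:55767934-55768183 on the plus strand. Each runs 5′ to 3′ and ends at the base before the RefSeq start. That start lies 114 bases upstream of the GENCODE start of P2ry12 and 6 bases downstream of that of Siglech, and the distances below are from the RefSeq start.
P2ry12: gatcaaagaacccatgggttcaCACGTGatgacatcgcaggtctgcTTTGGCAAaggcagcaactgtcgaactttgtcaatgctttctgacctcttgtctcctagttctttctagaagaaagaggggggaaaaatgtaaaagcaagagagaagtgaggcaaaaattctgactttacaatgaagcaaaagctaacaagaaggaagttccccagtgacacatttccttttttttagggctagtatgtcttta
Siglech: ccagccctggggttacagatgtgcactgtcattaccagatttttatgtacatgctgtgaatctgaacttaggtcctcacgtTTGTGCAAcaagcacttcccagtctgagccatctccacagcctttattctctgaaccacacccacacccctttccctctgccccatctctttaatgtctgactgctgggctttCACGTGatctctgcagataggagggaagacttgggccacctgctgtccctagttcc
Capitals mark the E-box CACGTG and the C/EBP motif TTGCNNAA, searched on both strands. The E-box begins 228 bases before the start of P2ry12 and the C/EBP match 204 bases before it. In Siglech, the C/EBP match begins 169 bases and the E-box 56 bases before the start. Over the windows from 250 bases before to 50 after the start of the 9823 tested genes that had one, 11.9% held the E-box and 10.1% the C/EBP motif. Among the 23 homeostatic genes called lower with a window, 4 (17.4%) held the E-box and 5 (21.7%) the C/EBP motif. Of 11 motifs searched for, these had the highest shares in the 23 genes. The other motifs, at 0 to 4.35% of the 23 and 0.305 to 8.67% of the 9823, were PU.1 (GAGGAAGT), AP-1 (TGACTCA), CRE (TGACGTCA), NRF1 (GCATGCGC), NF-kB (GGANTTTCC), STAT (TTCNNNGAA), IRF (GAAANNGAA), SREBP (TCACNCCAC) and SMAD (GTCTAGAC). These are matches of letters, and no binding was measured.

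Other homeostatic genes fell as well. Slc2a5 read 595, 630.0 and 569 CPM in Normal, 353, 419.8 and 413 in NMO and 125, 102 and 218 in NMO+CL, with all NMO+CL libraries lowest (log2 fold change of -2.01 with adjusted p = 5.31e-05). Slc2a5 encodes GLUT5, the fructose transporter that marks microglia among brain cells. Crybb1 stood at 114, 96.6 and 84.1 CPM in Normal, 53.4, 60.8 and 59.9 in NMO and 24.1, 19.9 and 30.6 in NMO+CL (log2 fold change of -1.98 with adjusted p = 9.59e-05). Crybb1 is a crystallin found in mature microglia. Rasgrp3 was at 362, 374 and 429.9 CPM in Normal, 334, 238 and 269.8 in NMO and 98.6, 122 and 121 in NMO+CL. This activator of Ras and Rap, which lies downstream of diacylglycerol, showed no overlap between NMO+CL and either other group (log2 fold change of -1.77 with adjusted p = 2.62e-05). Marcks measured 2563, 2225 and 3027 CPM in Normal, 1988, 1922 and 1802 in NMO and 868, 811 and 778 in NMO+CL. The product of Marcks binds actin at the plasma membrane, and its 3 NMO+CL libraries lay within a narrow band far below the rest (log2 fold change of -1.67 with adjusted p = 6.19e-06). The secreted protease inhibitor cystatin C, encoded by Cst3, was the most abundant gene that fell. Cst3 lay at 22529, 22908 and 24648 CPM in Normal, 17268, 19629.9 and 19342 in NMO and 11864, 9194 and 6806 in NMO+CL, with the lowest NMO+CL value in replicate 3 (log2 fold change of -1.33 with adjusted p = 6.69e-05). Against NMO, Slc2a5 gave a log2 fold change of -1.41 (adjusted p = 0.00508), Crybb1 -1.22 (adjusted p = 0.0184), Rasgrp3 -1.30 (adjusted p = 0.00273), Marcks -1.22 (adjusted p = 0.000972) and Cst3 -1.01 (adjusted p = 0.00393).

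Further members called lower included Olfml3 (-1.22, adjusted p = 0.000489), Sparc (-1.02, adjusted p = 0.000608), Selplg (-1.02, adjusted p = 0.00108), Adgrg1 (-1.04, adjusted p = 0.00299) and Hpgd (-1.65, adjusted p = 0.000472). Olfml3 and Sparc encode matrix proteins, Selplg the ligand of P-selectin, Adgrg1 an adhesion receptor, and Hpgd the dehydrogenase that inactivates prostaglandins. Trem2 read 819, 817 and 889 CPM in Normal, 663, 603 and 765 in NMO and 399.6, 468 and 468 in NMO+CL. Trem2 senses lipids and damaged cells, and every NMO+CL library lay below every library of the other groups (log2 fold change of -0.92 with adjusted p = 0.00165), while the test against NMO gave -0.60 with adjusted p = 0.0825. P2ry13 stood at 1521, 1856 and 2593 CPM in Normal, 1675, 1578 and 1631 in NMO and 813, 834 and 1287 in NMO+CL (log2 fold change of -1.02 with adjusted p = 0.00424). The fractalkine receptor Cx3cr1 and the Fc receptor-like scavenger Fcrls fell by less (-0.54 and -0.69, adjusted p = 0.0378 and 0.0173). Without NMO+CL replicate 2, 13 of the wider list of 39 were called lower. Cx3cr1 lost its call without any 1 Normal library, NMO replicate 1 or NMO+CL replicates 1 or 2 (adjusted p 0.0639 to 0.162) and Fcrls without Normal replicate 2 or NMO+CL replicates 1 or 2 (adjusted p 0.0544 to 0.113). Against NMO, Olfml3 gave a log2 fold change of -0.77 (adjusted p = 0.0435) and Selplg -0.72 (adjusted p = 0.0441).

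**Figure D3:**
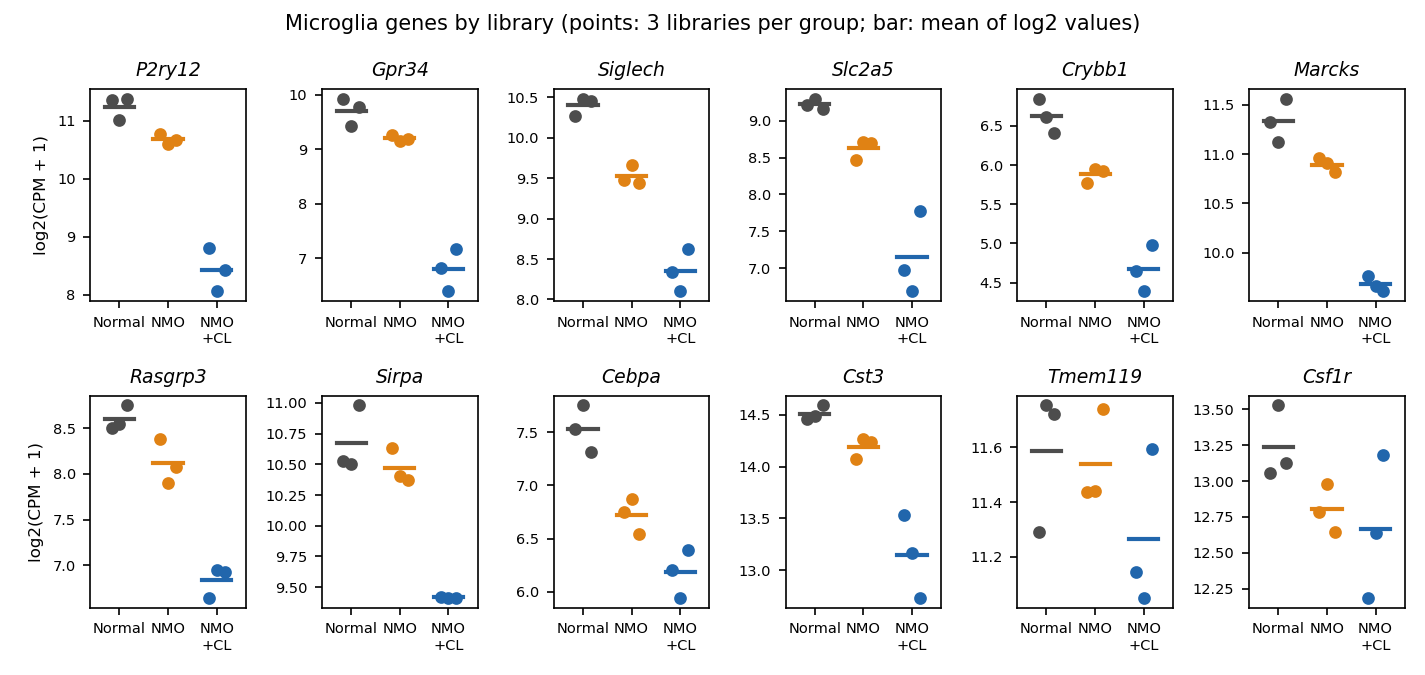
Levels of 12 microglial genes in each of the 9 libraries (y axis, log2 of CPM + 1, own scale per panel). Points are libraries and the bar is the mean of the log values, and in 10 panels the 3 NMO+CL points lie below all 3 Normal points, while Tmem119 and Csf1r overlap.

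Of 30 transcription factors of the macrophage and microglial lineage, 7 were called lower and 2 higher. Cebpa was at 183, 214 and 158 CPM in Normal, 107, 116 and 92.5 in NMO and 73, 60.4 and 83.3 in NMO+CL. Cebpa, a myeloid factor, was lowest in NMO+CL and intermediate in NMO (log2 fold change of -1.36 with adjusted p = 0.000571). Maf measured 836, 608 and 692 CPM in Normal, 557, 593 and 519 in NMO and 307, 325 and 348 in NMO+CL, and this factor of resident macrophages was lower than in both other groups (log2 fold change of -1.12 with adjusted p = 0.00052, against NMO -0.77 with adjusted p = 0.0295). Sall1 lay at 441, 347 and 386 CPM in Normal, 344, 343 and 241 in NMO and 219, 159 and 246 in NMO+CL. Sall1 is the factor most closely tied to microglial identity among brain macrophages (log2 fold change of -0.91 with adjusted p = 0.00975). The remaining falls were Fli1 (-0.99, adjusted p = 0.0101), Hhex (-0.94, adjusted p = 0.0176), Mef2a (-0.55, adjusted p = 0.0346) and Nr1d2 (-1.6, adjusted p = 0.0383). Klf4, a factor induced by growth signals and stress, rose. Klf4 read 96.4, 83.8 and 142 CPM in Normal, 102, 102 and 99.4 in NMO and 218, 348 and 207 in NMO+CL, with no overlap between NMO+CL and the other groups (log2 fold change of 1.26 with adjusted p = 0.00281, against NMO 1.35 with adjusted p = 0.00839). Runx1 rose by 0.63 (adjusted p = 0.048). Irf8, a factor that microglia need, was not called (log2 fold change of -0.08 with adjusted p = 0.861). The lower count of this list was 3 without Normal replicate 1 and 2 without NMO+CL replicate 2. Sall1 lost its call without Normal replicate 1 or NMO+CL replicate 2 (adjusted p 0.0518 to 0.069), Fli1 without NMO+CL replicate 2 (adjusted p = 0.0587), Hhex without Normal replicate 1 or NMO+CL replicates 2 or 3 (adjusted p 0.0577 to 0.0812), Mef2a without any 1 Normal library, NMO replicate 1 or NMO+CL replicates 2 or 3 (adjusted p 0.0593 to 0.141), Nr1d2 without Normal replicates 1 or 3 or NMO+CL replicates 2 or 3 (adjusted p 0.0989 to 0.175) and Runx1 without Normal replicates 2 or 3, NMO replicates 1 or 2 or NMO+CL replicates 1 or 2 (adjusted p 0.0513 to 0.182). Lineage factors called higher numbered 1 without Normal replicates 2 or 3, NMO replicates 1 or 2 or NMO+CL replicates 1 or 2.

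Transforming growth factor beta signalling held 3 genes called lower of 27 tested and none higher. Tgfbr1 stood at 1051, 713 and 857 CPM in Normal, 723, 712 and 996 in NMO and 485, 389 and 387 in NMO+CL. This type I receptor was lower in NMO+CL than in every Normal and every NMO library (log2 fold change of -1.06 with adjusted p = 0.0021, against NMO -0.95 with adjusted p = 0.0199). Acvr1 was at 45.6, 50.4 and 105 CPM in Normal, 57.2, 63.9 and 73.5 in NMO and 32.8, 14.6 and 14.6 in NMO+CL (log2 fold change of -1.70 with adjusted p = 0.00692). Acvr1 is a type I receptor for bone morphogenetic proteins. Smad7, the inhibitor that signalling induces against itself, fell by 0.77 in log2 units (adjusted p = 0.0446). Without Normal replicate 3, 1 member of the list was called lower. Acvr1 lost its call without Normal replicate 3 (adjusted p = 0.0713) and Smad7 without any 1 Normal library, NMO replicate 1 or NMO+CL replicates 1 or 2 (adjusted p 0.0624 to 0.236). Against NMO, Acvr1 gave a log2 fold change of -1.65 (adjusted p = 0.0296).

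Among 14 genes of purine signalling, 5 were called lower and 1 higher. The falls were P2ry12, Gpr34 and P2ry13, described above, with P2rx7, the ATP-gated channel upstream of the inflammasome (log2 fold change of -0.73 with adjusted p = 0.0139), and Entpd1, the ectoenzyme that degrades ATP and ADP (log2 fold change of -0.72 with adjusted p = 0.0195). P2ry2 went the other way. P2ry2 measured 0, 0 and 0 CPM in Normal, 3.52, 2.39 and 0 in NMO and 6.42, 15.2 and 18.1 in NMO+CL. P2ry2, a receptor for ATP and UTP linked to uptake and migration, had no read in any Normal library, and with a floor of 3 reads per Normal library the rise in NMO+CL was at least 27.7-fold (adjusted p = 0.004). Of 24 ion channels, 2 were called higher and 1 lower. Clic4 (log2 fold change of 1.40 with adjusted p = 0.0205) is an intracellular chloride channel protein, and Kcnd1 (log2 fold change of -1.6 with adjusted p = 0.0206) a voltage-gated potassium channel. Trpv4, a calcium channel that responds to swelling and warmth, had 3 reads in all Normal libraries and 125 in NMO+CL, a ratio of 40.8 with an exact 95% interval from 13.6 to 200.4 for counting error only (adjusted p = 0.0347). This ratio was 81.7 (exact 95% interval 14.4 to 3251) without Normal replicate 1 and 22.6 (exact 95% interval 7.26 to 113) without NMO+CL replicate 2. Without NMO+CL replicate 2, 3 purine genes were called lower. P2rx7 lost its call without Normal replicate 1 or NMO+CL replicate 2 (adjusted p 0.0745 to 0.0823), Entpd1 without Normal replicates 2 or 3 or NMO+CL replicates 1 or 2 (adjusted p 0.0653 to 0.088), Clic4 without any 1 Normal library or NMO+CL replicate 3 (adjusted p 0.0609 to 0.0973), Kcnd1 without Normal replicates 1 or 3 or NMO+CL replicate 2 (adjusted p 0.0777 to 0.0987) and Trpv4 without any 1 Normal library, NMO replicate 2 or NMO+CL replicates 1 or 2 (adjusted p 0.0518 to 0.208). Purine genes called higher numbered 2 without NMO+CL replicate 1. Ion channel genes called higher numbered 0 without Normal replicates 1 or 2 and 1 without Normal replicate 3, NMO replicate 2 or NMO+CL replicates 1 or 2. Ion channel genes called lower numbered 0 without Normal replicates 1 or 3 or NMO+CL replicate 2 and 2 without NMO replicate 3 or NMO+CL replicate 1.

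The assembly of ribosomes starts in the nucleolus, where ribosomal RNA is transcribed, cut, modified and bound by proteins. Of 95 tested genes of this process, 47 were called higher in NMO+CL and none lower, and the median log2 fold change was 1.08. The fold change was positive for 93 of them, and in 64 every NMO+CL library was above every Normal library. Their summed level was 3521 to 4305 CPM in Normal and 8182 to 9419 CPM in NMO+CL. Ddx21 lay at 145, 224 and 174 CPM in Normal, 448, 487 and 378 in NMO and 576, 724 and 662 in NMO+CL. Ddx21, an RNA helicase of the nucleolus, rose without overlap, and NMO lay between (log2 fold change 1.85, SE 0.20, adjusted p = 2.3e-05). Gnl3 read 35.2, 56 and 61.2 CPM in Normal, 132, 127 and 191 in NMO and 230.4, 226 and 208 in NMO+CL. Nucleostemin, encoded by Gnl3, is a nucleolar GTPase of growing cells (log2 fold change 2.12, SE 0.24, adjusted p = 3.64e-05). Ftsj3 stood at 63.9, 76.8 and 55 CPM in Normal, 196, 165 and 122 in NMO and 247, 316 and 283 in NMO+CL. Ftsj3 encodes a methyltransferase that acts on ribosomal precursor RNA (log2 fold change 2.11, SE 0.22, adjusted p = 2.01e-05). Wdr43 was at 140.4, 138 and 101 CPM in Normal, 236, 275 and 246 in NMO and 342, 344 and 386 in NMO+CL (log2 fold change 1.5, SE 0.19, adjusted p = 9.25e-05). Wdr43 is part of the complex that processes the small subunit.

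Transcripts of other nucleolar proteins changed with them. Ncl measured 484, 586 and 602 CPM in Normal, 1054, 855 and 889.9 in NMO and 1278, 1447 and 1149.6 in NMO+CL, with all NMO+CL libraries highest (log2 fold change of 1.21 with adjusted p = 0.000225). Nucleolin, its product, organises the chromatin of ribosomal RNA genes. Nop56 lay at 30.8, 58.7 and 42.2 CPM in Normal, 122, 118 and 84.5 in NMO and 126, 155 and 143 in NMO+CL (log2 fold change of 1.68 with adjusted p = 0.000426). Nop58 read 45.9, 90.6 and 82.6 CPM in Normal, 159.7, 178 and 127 in NMO and 152, 311 and 280.2 in NMO+CL (log2 fold change of 1.76 with adjusted p = 0.000842). Nop56 and Nop58 form the core of the particles that methylate ribosomal RNA. Npm1, the chaperone of ribosome assembly, rose from 89.7, 80.8 and 81.8 CPM in Normal to 164, 180.5 and 189.9 in NMO+CL, with 145, 158 and 142 in NMO (log2 fold change of 1.08 with adjusted p = 0.00123). Nop2 stood at 36.3, 26.5 and 32 CPM in Normal, 60.5, 73.9 and 49.6 in NMO and 54.9, 74.7 and 81 in NMO+CL. Nop2 methylates a cytosine of the large subunit RNA (log2 fold change of 1.15 with adjusted p = 0.00983). Against NMO, the whole list held 1 gene called higher, and Ddx21, Gnl3 and Ncl gave 0.58 with adjusted p = 0.175, 0.56 with adjusted p = 0.309 and 0.47 with adjusted p = 0.207. All 9 fits that left out 1 library called 23 of the members. The count of the list was 31 without Normal replicate 1 and 26 without Normal replicate 3. Nop2 lost its call without Normal replicate 2 (adjusted p = 0.0599).

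The window of Nop2 is printed because the E-box, the motif bound by Myc and related factors, is in its capitals. It spans chr6:125131633-125131882 of GRCm38.p6 on the plus strand (RefSeq), 5′ to 3′ up to the base before the RefSeq start, which is 26 bases upstream of the GENCODE start.
Nop2: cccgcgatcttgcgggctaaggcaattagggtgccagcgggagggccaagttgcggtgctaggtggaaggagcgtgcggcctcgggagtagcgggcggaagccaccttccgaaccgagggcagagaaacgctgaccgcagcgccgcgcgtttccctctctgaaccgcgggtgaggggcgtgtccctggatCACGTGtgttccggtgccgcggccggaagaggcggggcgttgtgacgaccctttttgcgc
The capitals mark CACGTG, which begins 60 bases before the start. Within the windows that reach 50 bases past the start, the E-box was found for 89 of 479 genes called higher (18.6%), for 41 of 439 called lower (9.34%) and for 10 of the 41 ribosome biogenesis genes called higher that had a window (24.4%), beside 11.9% of all 9823. For the 15 chaperone genes called higher with a window it was 2 (13.3%). Among the ribosome biogenesis genes the other 10 of the 11 motifs were at 0 to 14.6%. No test was made of these shares, and whether any factor was bound was not measured.

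Of 78 ribosomal proteins tested, 14 were called higher and none lower, with a median of 0.44, and 74 had a positive fold change. Rpsa was at 61.8, 43.2 and 41.7 CPM in Normal, 86.5, 139.9 and 86.8 in NMO and 149, 143 and 154 in NMO+CL (log2 fold change of 1.6 with adjusted p = 0.000472). Rpl10a measured 133, 134 and 126 CPM in Normal, 173, 190.3 and 186 in NMO and 262, 299 and 267 in NMO+CL (log2 fold change of 1.07 with adjusted p = 0.000875). Rps2 (1.84), Rpl14 (0.96) and Rplp0 (0.87) were also called (adjusted p = 0.00101, 0.00603 and 0.0112). Ribosomal protein genes have many near-identical pseudogenes, and reads with several alignments were kept by the authors, so single members are uncertain. The count of this list was 6 without Normal replicate 3 and 6 without NMO+CL replicate 2. Rplp0 lost its call without Normal replicate 3 or NMO+CL replicate 2 (adjusted p 0.064 to 0.0713).

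In translation, 26 of 70 tested genes were called higher and 2 lower, with a median of 0.72. Eef1g lay at 39.8, 47.9 and 47.6 CPM in Normal, 131, 131 and 142 in NMO and 190.3, 193 and 125 in NMO+CL. This subunit of the factor that loads elongation factor 1A was lowest in all Normal libraries (log2 fold change of 1.91 with adjusted p = 3.98e-05). Eif4g1 read 251, 276 and 216 CPM in Normal, 368, 419.6 and 464 in NMO and 725, 661 and 468 in NMO+CL. Eif4g1 is the scaffold of the complex that binds the cap of messenger RNA (log2 fold change of 1.32 with adjusted p = 0.000413). The transfer RNA synthetases Eprs (log2 fold change of 1.11 with adjusted p = 0.00117) and Vars (log2 fold change of 1.54 with adjusted p = 0.00162), and Eif1a, which helps to find the start codon (log2 fold change of 1.67 with adjusted p = 0.00135), rose as well. Eef2k, the kinase that switches off elongation factor 2, fell. Eef2k stood at 117, 127 and 124 CPM in Normal, 56.8, 63.8 and 59.2 in NMO and 44.1, 43.3 and 62.6 in NMO+CL, so that NMO and NMO+CL overlapped (log2 fold change of -1.29 with adjusted p = 0.00133). Eif4g3, a relative of Eif4g1, fell by 0.87 in log2 units (adjusted p = 0.0223). The higher count was 17 without Normal replicate 2, 17 without Normal replicate 3 and 15 without NMO+CL replicate 2. Eif4g3 lost its call without Normal replicate 3 or NMO+CL replicates 2 or 3 (adjusted p 0.0745 to 0.148).

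Of 41 chaperone genes tested, 19 were called higher and none lower, 35 had a positive fold change, the median was 0.81, and the summed level was 5739 to 7863 CPM in Normal and 11311 to 13071 CPM in NMO+CL. Hsp90ab1 was at 832, 1275 and 1401 CPM in Normal, 2161, 2079.7 and 2036 in NMO and 2731, 3767 and 4110.0 in NMO+CL. Hsp90ab1, the constitutive cytosolic form of HSP90, was the most abundant gene called higher (log2 fold change of 1.6 with adjusted p = 7.8e-05). It too has processed copies in the genome. Hspa8 measured 279, 302 and 331 CPM in Normal, 602, 585 and 574 in NMO and 875, 908 and 820.2 in NMO+CL. Hspa8 is the constitutive HSC70 (log2 fold change of 1.51 with adjusted p = 2.19e-05). Among subunits of the chaperonin that folds actin and tubulin, Cct3 and Cct5 had the smallest p. Cct3 lay at 84.8, 72.5 and 58 CPM in Normal, 182, 213 and 147 in NMO and 234, 267 and 193 in NMO+CL (log2 fold change of 1.69 with adjusted p = 0.00012). Cct5 read 78.2, 56.1 and 61.4 CPM in Normal, 116, 80.3 and 121 in NMO and 151, 176 and 174 in NMO+CL (log2 fold change of 1.36 with adjusted p = 0.000904). The mitochondrial chaperonin Hspd1 (log2 fold change of 1.25 with adjusted p = 0.00168) and the HSP70 partner Hsph1 (log2 fold change of 1.41 with adjusted p = 0.00127) rose too. Hsp90aa1, the inducible form of HSP90, was not called (log2 fold change of 0.56 with adjusted p = 0.11), but was called without NMO+CL replicate 1 (a log2 fold change of 0.75 with adjusted p = 0.0315).

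The endoplasmic reticulum stress list covers chaperones of secreted proteins and the amino acid and one-carbon enzymes that the factor ATF4 controls. It held 9 genes called higher of 43 tested and none lower. Psat1 stood at 14.5, 17.8 and 17.3 CPM in Normal, 33.6, 57 and 29.1 in NMO and 111, 129.8 and 107 in NMO+CL. Psat1, an enzyme of serine synthesis, was above both other groups in every NMO+CL library (log2 fold change 2.81, SE 0.29, adjusted p = 1.69e-05, against NMO 1.54 with adjusted p = 0.00839). Shmt2 was at 16.1, 10.2 and 13.8 CPM in Normal, 55.7, 48.4 and 33 in NMO and 47.6, 95.4 and 82.5 in NMO+CL (log2 fold change of 2.49 with adjusted p = 0.000154). Mthfd2 measured 38.7, 41.4 and 21.4 CPM in Normal, 61.5, 99.5 and 68.4 in NMO and 89.3, 108 and 116 in NMO+CL (log2 fold change of 1.62 with adjusted p = 0.00134). Shmt2 and Mthfd2 are mitochondrial enzymes that pass a carbon unit from serine to folate. Hspa5 lay at 1127, 1314 and 1584 CPM in Normal, 2104, 1718 and 1743 in NMO and 2634, 2795 and 3198 in NMO+CL. Hspa5 encodes BiP, the HSP70 of the endoplasmic reticulum (log2 fold change of 1.10 with adjusted p = 0.000427). Pdia4 (0.97) and Hyou1 (1.21), which assist folding there, were called (adjusted p = 0.00165 and 0.00212), as was the lectin chaperone Calr (log2 fold change of 0.54 with adjusted p = 0.0424). Calr lost its call without any 1 Normal library, NMO replicate 1 or NMO+CL replicates 2 or 3 (adjusted p 0.0695 to 0.188). Against NMO, Pdia4 gave a log2 fold change of 0.72 (adjusted p = 0.0438).

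**Figure D4:**
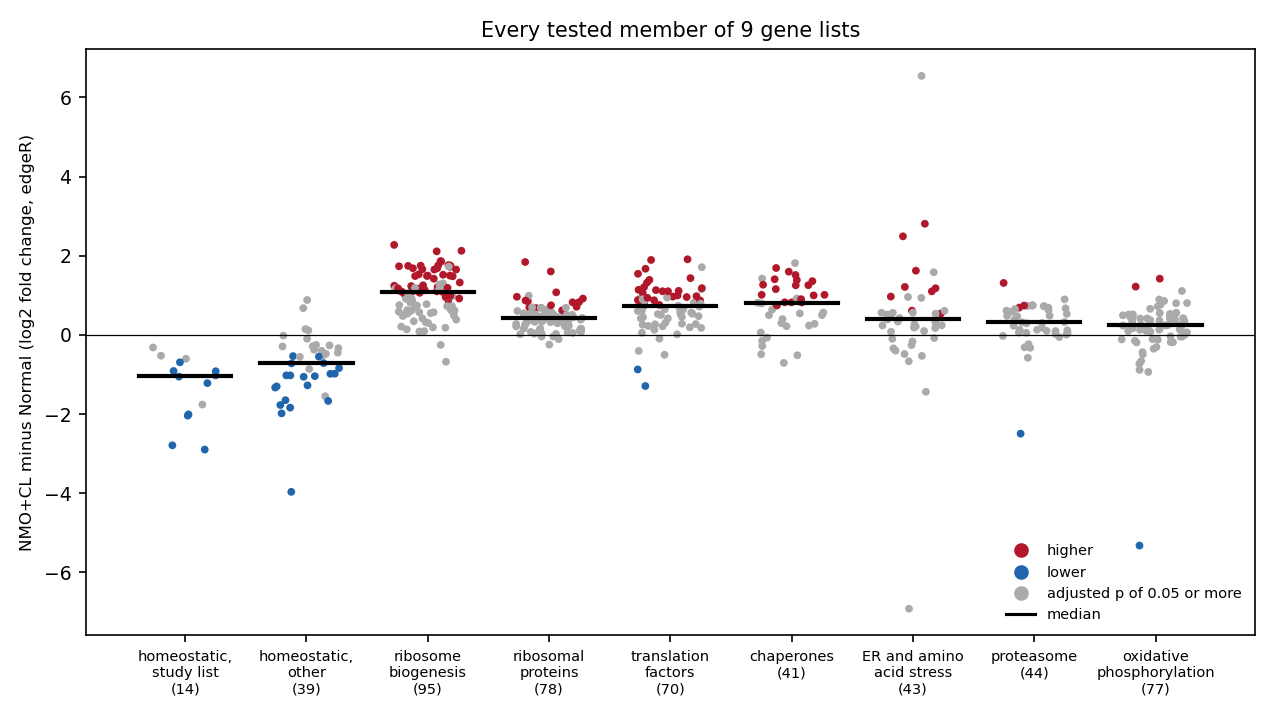
Log2 fold change, NMO+CL over Normal, of every tested member of 9 gene lists (points), with called members coloured and the rest grey. The members of ribosome biogenesis lie almost wholly above 0 (93 of 95) and the homeostatic lists almost wholly below.

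Receptors by which macrophages take up modified lipids and debris stood at the head of the rises. Of 14 scavenger receptors, 4 were called higher and none lower. Msr1 read 0.478, 0 and 0.673 CPM in Normal, 119, 101 and 40 in NMO and 295, 364 and 239 in NMO+CL. Msr1, the class A scavenger receptor (chromosome 8, 39581685 to 39642673, minus strand), had at most 4 reads in any Normal library and rose by 9.58 in log2 units (adjusted p = 4.24e-08), and it was also above NMO (1.79 with adjusted p = 0.0131). Marco stood at 0, 0 and 0 CPM in Normal, 116, 75.4 and 26.3 in NMO and 49.3, 59.5 and 32.3 in NMO+CL. Marco, a related receptor for bacteria and particles, had no read in Normal and its rise in NMO+CL was at least 98.4-fold with the floor of 3 reads per library (adjusted p = 6.06e-06). Its NMO and NMO+CL libraries overlapped (-0.63 with adjusted p = 0.609). The smaller rises were Cxcl16 (1.15, adjusted p = 0.0278) and Stab1 (0.76, adjusted p = 0.036). Cxcl16 is both a chemokine and a receptor for oxidised lipid, and Stab1 clears modified proteins. The count of this list was 2 without NMO+CL replicate 2, and 2 without Normal replicate 2 or 3. Cxcl16 lost its call without Normal replicates 2 or 3 or NMO+CL replicates 1 or 2 (adjusted p 0.0843 to 0.137) and Stab1 without any 1 Normal library or NMO+CL replicate 2 (adjusted p 0.0637 to 0.239). Msr1 moved to a log2 fold change of 8.98 without Normal replicate 2. At most 3 reads of Msr1 are left in 1 group, and the ratio of reads between the groups was 1287 (exact 95% interval 440.3 to 6245) without Normal replicate 3.

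Genes of the clearance of dying cells moved in both directions, with 1 of 25 called higher and 4 lower. Elmo1 was at 128, 119.8 and 144 CPM in Normal, 92.2, 109 and 82.9 in NMO and 32.7, 34.3 and 32.8 in NMO+CL. Elmo1, an adaptor that links uptake receptors to Rac, did not overlap between NMO+CL and the other groups, both of which were higher (log2 fold change -1.97, SE 0.22, adjusted p = 2.56e-05, against NMO -1.51 with adjusted p = 0.00181). Sirpa measured 1478, 1449 and 2019 CPM in Normal, 1589.8, 1353 and 1323 in NMO and 685, 679.8 and 682 in NMO+CL. The 3 NMO+CL libraries of Sirpa, the receptor of the signal against uptake, were almost identical (log2 fold change of -1.27 with adjusted p = 0.000139, against NMO -1.06 with adjusted p = 0.00393). Its ligand Cd47 fell by 1.39 in log2 units (adjusted p = 0.0385), and Trem2 is described above. Cd47 lost its call without Normal replicates 1 or 3 or NMO+CL replicates 1 or 3 (adjusted p 0.0876 to 0.212).

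The rise of this list, Cd300lf, also had the smallest p-value among the rises of 32 paired immune receptors, of which 5 were called higher and 4 lower. Cd300lf lay at 0.956, 2.71 and 3.03 CPM in Normal, 11.2, 6.94 and 3.84 in NMO and 74.9, 205 and 111 in NMO+CL. Cd300lf, an inhibitory receptor that binds phospholipids (chromosome 11, 115116214 to 115133992, minus strand), was far higher in every NMO+CL library than in any other library (log2 fold change 5.86, SE 0.52, adjusted p = 4.18e-06, against NMO 4.14 with adjusted p = 0.000218). Cd244 read 0.159, 3.16 and 5.38 CPM in Normal, 14.2, 13.9 and 5.28 in NMO and 104, 201 and 110.5 in NMO+CL. Cd244 is a receptor of the SLAM family known from natural killer cells (log2 fold change 5.58, SE 0.62, adjusted p = 3.16e-05, against NMO 3.63 with adjusted p = 0.00303). Lilrb4a stood at 6.85, 0 and 3.87 CPM in Normal, 28.8, 15.4 and 17.1 in NMO and 99.7, 71.1 and 45.8 in NMO+CL (log2 fold change of 4.34 with adjusted p = 0.000842). Lilrb4a is an inhibitory immunoglobulin-like receptor with close relatives in the genome. Treml2 was at 17.8, 9.18 and 12.1 CPM in Normal, 19.6, 23.2 and 26.1 in NMO and 53.1, 79.1 and 41.6 in NMO+CL (log2 fold change of 2.15 with adjusted p = 0.000934). Trem1, an amplifier of inflammation best known from neutrophils, is listed with its values below. The falls besides Siglech and Sirpa were Lair1 (-0.73, adjusted p = 0.0116) and Cd48 (-1.45, adjusted p = 0.0371). Lair1 is an inhibitory receptor for collagen, and Cd48 is the ligand of Cd244. Lair1 lost its call without NMO+CL replicate 2 (adjusted p = 0.0856) and Cd48 without Normal replicates 1 or 3 or NMO+CL replicates 2 or 3 (adjusted p 0.106 to 0.16). Cd244 moved to a log2 fold change of 6.35 without Normal replicate 3, Lilrb4a to 5.25 without Normal replicate 1 and 3.75 without Normal replicate 2 and Cd48 to -2.13 without NMO+CL replicate 1.

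Complement held 5 genes called higher of 24 and none lower. C5ar1 measured 86, 70.1 and 79.8 CPM in Normal, 245, 348 and 192 in NMO and 632, 691 and 362 in NMO+CL. The receptor of the anaphylatoxin C5a (chromosome 7, 16246743 to 16259540, minus strand) had its lowest levels in Normal and its highest in NMO+CL, without overlap of any groups (log2 fold change 2.84, SE 0.27, adjusted p = 6.06e-06, against NMO 1.10 with adjusted p = 0.0318). C3ar1 lay at 310.3, 278 and 264 CPM in Normal, 652, 612 and 439.6 in NMO and 791, 836 and 865 in NMO+CL. The receptor of C3a rose as well (log2 fold change of 1.55 with adjusted p = 4.92e-05), while NMO+CL against NMO gave 0.55 with adjusted p = 0.161. C4b read 4.62, 4.97 and 0.673 CPM in Normal, 13.8, 10.8 and 18.7 in NMO and 73.7, 71.1 and 74.5 in NMO+CL. C4b encodes complement component 4 and shares reads with its near-identical neighbour C4a (log2 fold change of 4.40 with adjusted p = 3.72e-05, against NMO 2.34 with adjusted p = 0.0129), and C4a was called as well (log2 fold change of 3.28 with adjusted p = 0.0201). The fifth gene was Calr, given above. The list held 3 calls without either of Normal replicates 1 and 3 and without either of NMO+CL replicates 2 and 3. C4a lost its call without Normal replicates 1 or 3 or NMO+CL replicates 2 or 3 (adjusted p 0.0587 to 0.0814).

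Receptors that guide migration included 4 called higher and 1 called lower of 20, the fall being Cx3cr1. Besides C5ar1 and C3ar1, Gpr84 stood at 81.3, 50 and 67.1 CPM in Normal, 266, 244 and 237 in NMO and 464, 473 and 196 in NMO+CL. Gpr84 responds to fatty acids of medium length and is strongly induced in inflamed microglia (log2 fold change of 2.51 with adjusted p = 3.83e-05). Gpr35 was at 37.8, 15.7 and 25.9 CPM in Normal, 29.5, 20.8 and 17.3 in NMO and 86.8, 84.4 and 77 in NMO+CL. Gpr35 was above Normal and NMO in all NMO+CL libraries (log2 fold change of 1.65 with adjusted p = 0.00346, against NMO 1.87 with adjusted p = 0.00751). Of 16 chemokines, 2 were called higher and 2 lower. Ccl12 measured 51.9, 19.9 and 45.4 CPM in Normal, 897, 947 and 394 in NMO and 485, 236 and 102 in NMO+CL. Ccl12, a ligand of Ccr2 that attracts monocytes, was higher in 2 of the 3 NMO libraries than in any other library (log2 fold change of 2.81 with adjusted p = 0.00099, against NMO -1.44 with adjusted p = 0.129). Ccl9 (log2 fold change of -1.51 with adjusted p = 0.00638) and Ccl6 (log2 fold change of -0.93 with adjusted p = 0.00728), chemokines that microglia express at rest, fell. Ccl2, Ccl3 and Cxcl10 were not called (1.17, 0.30 and 1.57, adjusted p = 0.2, 0.613 and 0.181). Ccl9 lost its call without Normal replicate 1 (adjusted p = 0.0549). Receptors of migration called lower numbered 0 without any 1 Normal library, NMO replicate 1 or NMO+CL replicates 1 or 2. Chemokines called higher numbered 1 without Normal replicates 2 or 3 or NMO+CL replicates 1 or 2. Ccl12 moved to a log2 fold change of 2.12 without NMO+CL replicate 1.

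Interleukin 1 and inflammasome genes numbered 29, with 3 called higher and 2 lower. Il1b lay at 15, 8.73 and 18.8 CPM in Normal, 91.2, 65.7 and 44.5 in NMO and 66.5, 67.7 and 73.8 in NMO+CL. The cytokine Il1b lay in the same range in NMO and NMO+CL (log2 fold change of 2.29 with adjusted p = 0.000293, against NMO 0.05 with adjusted p = 0.983). Naip2 read 79.5, 94.4 and 89.7 CPM in Normal, 109.5, 102 and 76.7 in NMO and 184, 231 and 188 in NMO+CL (log2 fold change of 1.19 with adjusted p = 0.00135). Naip2 senses bacterial secretion proteins and has close paralogs. The falls were Nlrp3, the sensor of the main inflammasome (log2 fold change of -1.02 with adjusted p = 0.0399), and Irak2, a kinase below the interleukin 1 receptor (log2 fold change of -1.06 with adjusted p = 0.0259). Of 36 genes of NF-kB and tumour necrosis factor signalling, 4 were called higher and none lower. Relt stood at 4.3, 0.903 and 1.85 CPM in Normal, 16, 9.82 and 11.2 in NMO and 32.5, 23.7 and 19.5 in NMO+CL (log2 fold change of 3.42 with adjusted p = 0.00119). Relt is a receptor of the tumour necrosis factor family. Bcl3 was at 8.13, 1.2 and 0.673 CPM in Normal, 14.2, 15.6 and 21.3 in NMO and 26.7, 39.5 and 26.4 in NMO+CL (log2 fold change of 3.20 with adjusted p = 0.00505). Bcl3 and Nfkbia (log2 fold change of 0.82 with adjusted p = 0.00632) are members of the inhibitor of NF-kB family. Tnf itself rose by 1.37 (adjusted p = 0.0219). Nlrp3 lost its call without Normal replicates 1 or 3, NMO replicate 1 or any 1 NMO+CL library (adjusted p 0.0578 to 0.27), Irak2 without Normal replicates 2 or 3 or any 1 NMO+CL library (adjusted p 0.0521 to 0.155) and Tnf without Normal replicates 2 or 3 or NMO+CL replicate 2 (adjusted p 0.0864 to 0.139). Against NMO, Naip2 gave a log2 fold change of 1.06 (adjusted p = 0.0148) and Nlrp3 -1.23 (adjusted p = 0.0484). Relt moved to a log2 fold change of 4.19 without Normal replicate 1 and Bcl3 to 5.0 without Normal replicate 1.

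Of 34 cytokine receptors and their signal transducers, 7 were called higher and 3 lower. Il4ra measured 145, 209 and 231 CPM in Normal, 407, 285 and 527 in NMO and 838, 976 and 1134 in NMO+CL. Il4ra, the shared chain of the receptors for interleukins 4 and 13, was higher than in NMO too (log2 fold change 2.33, SE 0.24, adjusted p = 1.53e-05, against NMO 1.27 with adjusted p = 0.00877). Lifr, the receptor of leukaemia inhibitory factor, was nearly level within each group, at 105, 133 and 109 CPM in Normal, 117, 116 and 144 in NMO and 233, 227 and 235 in NMO+CL (log2 fold change of 1.0 with adjusted p = 0.00261). Socs3 and Stat3, the inhibitor and the transcription factor of interleukin 6-type signalling, rose (1.17 and 1.02, adjusted p = 0.0108 and 0.015). Il7r lay at 52.1, 48.9 and 57 CPM in Normal, 21.9, 39.5 and 40.7 in NMO and 12.3, 9.4 and 2.4 in NMO+CL. Il7r, a receptor better known from lymphocytes, fell (log2 fold change of -2.71 with adjusted p = 0.00105, against NMO -2.08 with adjusted p = 0.0252). Il6ra (log2 fold change of -1.01 with adjusted p = 0.00494) and Il10ra (log2 fold change of -0.84 with adjusted p = 0.0155) fell by less. The higher count was 2 without Normal replicate 1, 4 without Normal replicate 2 and 3 without NMO+CL replicate 2, and the lower count 5 without NMO+CL replicate 1. Socs3 lost its call without Normal replicates 1 or 2 (adjusted p 0.0597 to 0.0644), Stat3 without Normal replicates 1 or 2 or NMO+CL replicate 2 (adjusted p 0.0581 to 0.0918) and Il10ra without Normal replicates 2 or 3 or NMO+CL replicate 2 (adjusted p 0.0613 to 0.0971). Against NMO, Lifr gave a log2 fold change of 0.88 (adjusted p = 0.0252).

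Fc receptors and their kinases had 2 calls in each direction among 18 genes. Fcgr4 read 18.2, 6.77 and 9.76 CPM in Normal, 49.5, 64 and 12.2 in NMO and 165, 235 and 165 in NMO+CL. Fcgr4, an activating receptor for immunoglobulin G, was higher in NMO+CL than in NMO and spread widely within NMO (log2 fold change 4.03, SE 0.49, adjusted p = 6.05e-05, against NMO 2.16 with adjusted p = 0.0184). The falls were Fcrls and Fcrl1 (log2 fold change of -1.56 with adjusted p = 0.0412). Toll-like receptors and partners, 18 in all, had 3 called higher and 3 lower. Tlr2 stood at 53.1, 29.2 and 43.9 CPM in Normal, 112, 93.3 and 75.1 in NMO and 133, 191 and 67.1 in NMO+CL (log2 fold change of 1.63 with adjusted p = 0.00361). Tlr2, for bacterial lipoproteins, was joined by its partner Tlr1 (1.33, adjusted p = 0.0349) and by Tlr13 (0.84, adjusted p = 0.0332). Ly86 was at 358, 278 and 423 CPM in Normal, 308, 247 and 271 in NMO and 149.6, 127 and 124 in NMO+CL. Ly86 encodes MD-1, a partner of a Toll-like receptor homolog, and was lowest in NMO+CL (log2 fold change of -1.40 with adjusted p = 0.000273, against NMO -1.04 with adjusted p = 0.0126). Unc93b1, which carries Toll-like receptors to endosomes, fell (log2 fold change of -0.99 with adjusted p = 0.00165), as did Ly96, the partner of Tlr4 (log2 fold change of -2.16 with adjusted p = 0.0371). The higher count was 1 without Normal replicate 3 or without NMO+CL replicate 1. Fcrl1 lost its call without any 1 Normal library, NMO replicate 1 or NMO+CL replicates 1 or 2 (adjusted p 0.0586 to 0.165), Tlr1 without any 1 Normal library or NMO+CL replicates 1 or 3 (adjusted p 0.0611 to 0.15), Tlr13 without Normal replicates 2 or 3 or NMO+CL replicates 1 or 2 (adjusted p 0.113 to 0.143) and Ly96 without any 1 Normal library, NMO replicates 1 or 2 or any 1 NMO+CL library (adjusted p 0.0503 to 0.176). Fc receptor genes called higher numbered 1 without NMO+CL replicate 2 and 4 without NMO+CL replicate 3. Fc receptor genes called lower numbered 0 without Normal replicate 2 or NMO+CL replicates 1 or 2 and 1 without Normal replicates 1 or 3 or NMO replicate 1. Against NMO, Unc93b1 gave a log2 fold change of -0.88 (adjusted p = 0.0173). Fcrl1 moved to a log2 fold change of -2.18 without NMO+CL replicate 3.

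**Figure D5:**
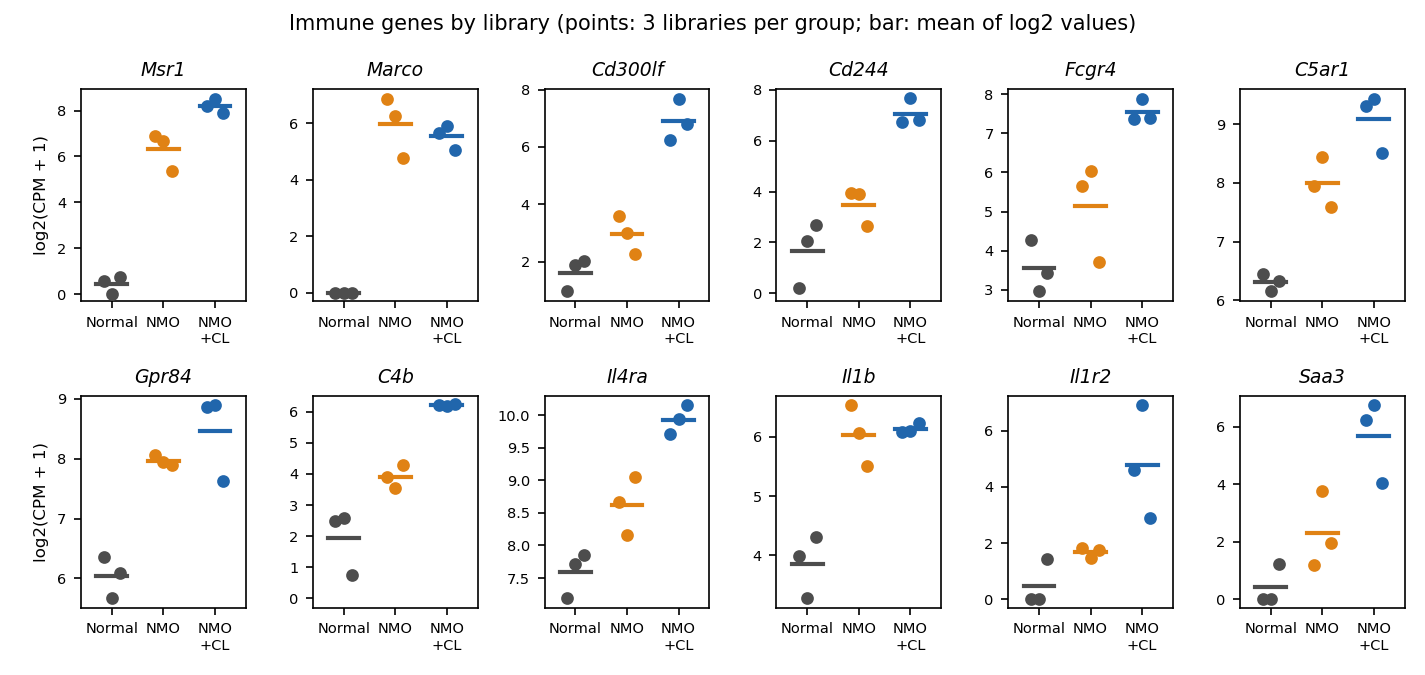
Levels of 12 immune genes in each of the 9 libraries (y axis, log2 of CPM + 1, own scale per panel). Points are libraries and the bar is the mean of the log values, and in all 12 panels every NMO+CL point lies above every Normal point, while Il1b, Marco and Gpr84 in NMO+CL overlap NMO.

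Antigen presentation, interferon response and lectins contributed few calls. Of 25 genes of antigen presentation, 1 was called in each direction. Ifi30 measured 149.9, 186 and 183 CPM in Normal, 296, 271 and 271 in NMO and 627, 762 and 638 in NMO+CL. Ifi30 reduces disulfide bonds of antigens in the lysosome (log2 fold change 1.97, SE 0.18, adjusted p = 4.8e-06, against NMO 1.28 with adjusted p = 0.00178). Tap2 lay at 63.6, 64.7 and 58.9 CPM in Normal, 66.4, 85.1 and 15.4 in NMO and 15, 8.75 and 16.3 in NMO+CL. Tap2, part of the peptide transporter of class I presentation, was low in all NMO+CL libraries and in NMO replicate 3 (log2 fold change of -2.22 with adjusted p = 0.00436). Among 44 proteasome genes, 3 were called higher (Psmd1 (0.69, adjusted p = 0.0314), Psmd7 (0.74, adjusted p = 0.0316) and Psme3 (1.31, adjusted p = 0.0369)), and the immunoproteasome subunit Psmb9, a neighbour of the Tap genes, was lower. Psmb9 read 38.4, 49.4 and 50.3 CPM in Normal, 36.7, 50.5 and 31.7 in NMO and 14, 7.45 and 2.88 in NMO+CL (log2 fold change of -2.50 with adjusted p = 0.00145, against NMO -2.28 with adjusted p = 0.0131). Psmb8, the other immunoproteasome subunit at that locus, was not called (log2 fold change of -0.58 with adjusted p = 0.247). The 4 proteasome calls are a share near that over all genes. Of 58 interferon-response genes, 4 were called higher and none lower, a share near that over all genes. They were Gbp7 (1.12, adjusted p = 0.00277), Ifitm3 (1.64, adjusted p = 0.00356), Ifi204 (1.92, adjusted p = 0.0126) and Mb21d1 (0.88, adjusted p = 0.0208). Ifi204 has close paralogs. None of 16 C-type lectins was called in either direction. The proteasome count was 1 without Normal replicate 1 and 0 without Normal replicates 2 or 3 or NMO+CL replicate 2. Psmd1 lost its call without Normal replicates 2 or 3 or NMO+CL replicates 1 or 2 (adjusted p 0.0618 to 0.147), Psmd7 without any 1 Normal library or NMO+CL replicates 2 or 3 (adjusted p 0.0664 to 0.131), Psme3 without any 1 Normal library, NMO replicate 1 or NMO+CL replicate 2 (adjusted p 0.0505 to 0.182), Ifi204 without Normal replicate 3 (adjusted p = 0.0713) and Mb21d1 without Normal replicate 1 or NMO+CL replicates 1 or 2 (adjusted p 0.0507 to 0.103). Antigen presentation genes called lower numbered 2 without NMO replicate 3 or NMO+CL replicates 1 or 3 and 3 without Normal replicate 2 or NMO replicate 2. Against NMO, Tap2 gave a log2 fold change of -2.06 (adjusted p = 0.0259). Psmb9 moved to a log2 fold change of -3.15 without NMO+CL replicate 1.

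Iron and metal handling had more members called higher than lower. Of 28 genes, 6 were called higher and 1 lower. Tfrc stood at 8.29, 11.6 and 8.41 CPM in Normal, 52.9, 56.5 and 67.6 in NMO and 58.4, 53.8 and 37 in NMO+CL. The transferrin receptor Tfrc overlapped between NMO and NMO+CL, with NMO+CL replicate 3 below every NMO library (log2 fold change of 2.39 with adjusted p = 9.98e-05, against NMO -0.25 with adjusted p = 0.81). Slc39a14 was at 4.14, 6.02 and 1.51 CPM in Normal, 39.4, 41.1 and 26.7 in NMO and 59.5, 37.3 and 35.7 in NMO+CL (log2 fold change of 3.49 with adjusted p = 0.00011). Slc39a14 imports zinc and iron not bound to transferrin, and its relative Slc39a1 rose by 1.04 (adjusted p = 0.0015). Fth1 measured 691, 634 and 591 CPM in Normal, 910.4, 1073 and 883 in NMO and 1929.6, 1527 and 841 in NMO+CL (log2 fold change of 1.17 with adjusted p = 0.00338). Fth1, the heavy chain of the iron store ferritin, has many copies in the genome. Slc40a1 lay at 152, 129 and 137 CPM in Normal, 67.5, 71.8 and 82.9 in NMO and 29.3, 23.8 and 45.6 in NMO+CL. Ferroportin, the exporter encoded by Slc40a1, had its highest levels in Normal and its lowest in NMO+CL, without overlap of any groups (log2 fold change -2.08, SE 0.26, adjusted p = 7.17e-05, against NMO -1.17 with adjusted p = 0.0249). Lcn2 read 15, 0 and 0.168 CPM in Normal, 15.1, 13.9 and 14.2 in NMO and 73.4, 20.1 and 20.5 in NMO+CL. Lcn2, a carrier of bacterial iron chelators that neutrophils also make, was not called (log2 fold change of 2.91 with adjusted p = 0.0871). This rested on Normal replicate 1, without which 1 read was left in Normal and Lcn2 was called (adjusted p = 0.00026). The ratio of reads between the groups was 493 (exact 95% interval 88.2 to 19510.0) without Normal replicate 1. Saa3 is given below. Iron and metal genes called lower numbered 2 without NMO+CL replicate 3.

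Of 20 eicosanoid genes, 4 were called higher and 2 lower. Alox5 stood at 22.8, 37.2 and 29.4 CPM in Normal, 42.4, 39.6 and 30.1 in NMO and 73.5, 104 and 105 in NMO+CL. Alox5, the lipoxygenase that starts leukotriene synthesis, was higher than in NMO as well (log2 fold change 1.66, SE 0.28, adjusted p = 0.000984, against NMO 1.33 with adjusted p = 0.019). Alox5ap was at 271, 321 and 299.8 CPM in Normal, 318, 349.5 and 292 in NMO and 540.4, 634 and 551 in NMO+CL. Its activating protein Alox5ap showed the same order of groups (log2 fold change of 0.95 with adjusted p = 0.00165, against NMO 0.85 with adjusted p = 0.0177). The prostaglandin E synthases Ptges3 and Ptges2 were also called (0.80 and 1.93, adjusted p = 0.0188 and 0.021). Hpgds measured 475, 580.4 and 606 CPM in Normal, 413, 356 and 443 in NMO and 204, 223 and 283 in NMO+CL. Hpgds, the synthase of prostaglandin D, fell (log2 fold change of -1.23 with adjusted p = 0.000503). Hpgd lay at 174, 117 and 203 CPM in Normal, 74.9, 98.6 and 85 in NMO and 63.3, 54.6 and 39.6 in NMO+CL, so the enzyme that inactivates prostaglandins fell too (log2 fold change of -1.65 with adjusted p = 0.000472). The higher count fell to 2 without NMO+CL replicate 2 and without either of Normal replicates 2 and 3. Ptges3 lost its call without any 1 Normal library or NMO+CL replicate 2 (adjusted p 0.056 to 0.098) and Ptges2 without Normal replicates 2 or 3 or NMO+CL replicate 2 (adjusted p 0.0878 to 0.101). Against NMO, Hpgds gave a log2 fold change of -0.77 (adjusted p = 0.0457).

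Of 17 genes known to answer to glucocorticoids, 6 were called higher and 1 lower, and 3 of the 6 were also higher than in NMO, namely Fkbp5, Ddit4 and Il1r2. Fkbp5 read 25.5, 39.7 and 40 CPM in Normal, 44.5, 48.1 and 53.5 in NMO and 164, 184 and 134 in NMO+CL. Fkbp5, a co-chaperone of the glucocorticoid receptor, stood apart in all NMO+CL libraries (log2 fold change 2.19, SE 0.24, adjusted p = 3.12e-05, against NMO 1.72 with adjusted p = 0.00178). Ddit4 stood at 87.6, 90.4 and 53.8 CPM in Normal, 78.5, 118 and 198 in NMO and 430.4, 839 and 189 in NMO+CL. Ddit4, an inhibitor of mTORC1 that stress also induces, ranged widely within NMO+CL where replicate 3 was lowest and within the NMO range (log2 fold change of 2.65 with adjusted p = 0.000746, against NMO 1.89 with adjusted p = 0.0258). Per1 was at 10.4, 18.8 and 9.93 CPM in Normal, 12.8, 26 and 31.5 in NMO and 53.8, 49.9 and 48.8 in NMO+CL. Per1, a clock gene, was nearly level within NMO+CL (log2 fold change of 1.96 with adjusted p = 0.00315). Tgm2 (log2 fold change of 1.01 with adjusted p = 0.00847) and Cdkn1a (log2 fold change of 1.15 with adjusted p = 0.0091) rose and Sgk1 fell (log2 fold change of -0.74 with adjusted p = 0.027). Tsc22d3, a widely used glucocorticoid target, was not called (log2 fold change of 1.19 with adjusted p = 0.0996), but was called without NMO replicate 3 (a log2 fold change of 1.19 with adjusted p = 0.00851). Without NMO+CL replicate 2 the higher count was 3. Tgm2 lost its call without Normal replicate 3 or NMO+CL replicate 2 (adjusted p 0.058 to 0.0614), Cdkn1a without NMO+CL replicate 2 (adjusted p = 0.0813) and Sgk1 without Normal replicate 1 or NMO+CL replicates 2 or 3 (adjusted p 0.0743 to 0.148). Ddit4 moved to a log2 fold change of 2.0 without NMO+CL replicate 2.

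In glycolysis and the pentose pathway, 8 of 38 genes were called higher and 3 lower. Pyruvate kinase, encoded by Pkm, was at 110.3, 109 and 115 CPM in Normal, 174, 166 and 181 in NMO and 214, 259.7 and 208 in NMO+CL (log2 fold change of 1.03 with adjusted p = 0.00154). Pgd, of the pentose pathway (log2 fold change of 1.09 with adjusted p = 0.00142), Gpi1 (log2 fold change of 1.08 with adjusted p = 0.00553) and Ldha, which makes lactate (log2 fold change of 1.40 with adjusted p = 0.00674), rose as well. Hk3 measured 49.9, 46.5 and 44.4 CPM in Normal, 29.3, 50 and 23.9 in NMO and 15.5, 8.91 and 9.93 in NMO+CL. Hexokinase 3 fell (log2 fold change of -2.03 with adjusted p = 0.00142), whereas Hk2 was higher (log2 fold change of 0.53 with adjusted p = 0.0421). Ldhb, the other lactate dehydrogenase chain, fell (log2 fold change of -0.96 with adjusted p = 0.00443), and the fructose transporter Slc2a5 is described above. Gapdh (log2 fold change of 0.97 with adjusted p = 0.044) has many pseudogenes. The higher count was 5 without any 1 Normal library or NMO+CL replicate 2, and 4 without NMO+CL replicate 1. Hk2 lost its call without any 1 Normal library, NMO replicate 1 or NMO+CL replicates 1 or 2 (adjusted p 0.07 to 0.166) and Gapdh without any 1 Normal library, NMO replicates 1 or 2 or any 1 NMO+CL library (adjusted p 0.0539 to 0.162). Of 77 genes of oxidative phosphorylation, 2 were called higher (Ndufa12 (1.42, adjusted p = 0.00158) and Atp5g1 (1.22, adjusted p = 0.0321)) and 1 lower, Sdhd. Both shares were below those over all genes. Atp5g1 lost its call without any 1 Normal library or NMO+CL replicates 1 or 2 (adjusted p 0.0548 to 0.155). Oxidative phosphorylation genes called higher numbered 1 without any 1 Normal library or NMO+CL replicates 1 or 2. Oxidative phosphorylation genes called lower numbered 2 without Normal replicate 1 or NMO replicates 2 or 3. Against NMO, Hk3 gave a log2 fold change of -1.59 (adjusted p = 0.0287).

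Among 32 redox genes, 4 were called higher and 1 lower. Cybb lay at 9.72, 2.41 and 7.91 CPM in Normal, 41.4, 15.2 and 5.6 in NMO and 82.1, 77.1 and 60.4 in NMO+CL. Cybb, the membrane subunit of the phagocyte NADPH oxidase, was lower in every Normal and NMO library than in any NMO+CL library (log2 fold change of 3.46 with adjusted p = 0.0012). Txnip read 593, 617 and 1036 CPM in Normal, 827, 654 and 639 in NMO and 426, 249 and 186 in NMO+CL. Txnip, which inhibits thioredoxin and glucose uptake, fell (log2 fold change of -1.38 with adjusted p = 0.00346, against NMO -1.30 with adjusted p = 0.0223). Ucp2 (1.16), Txnrd1 (1.28) and Prdx1 (0.88) rose (adjusted p = 0.00425, 0.0116 and 0.0236). Of 51 genes of sterols and fatty acids, 6 were called higher and 2 lower. Lpl stood at 21.7, 18.7 and 43.6 CPM in Normal, 242, 208 and 157 in NMO and 138, 98 and 64.1 in NMO+CL. Lipoprotein lipase, Lpl, was highest in NMO (log2 fold change of 1.84 with adjusted p = 0.00151). Elovl1 and Fasn, of fatty acid synthesis, rose (1.33 and 1.27, adjusted p = 0.00233 and 0.0082), as did Soat1, which esterifies cholesterol (log2 fold change of 1.06 with adjusted p = 0.0095, against NMO 1.06 with adjusted p = 0.0352). Abcg1, a cholesterol exporter (log2 fold change of -1.21 with adjusted p = 0.0171), and Lpcat2, which makes platelet-activating factor (log2 fold change of -1.03 with adjusted p = 0.00486), fell. Without Normal replicate 3, 2 redox genes were called higher, and without NMO+CL replicate 2, 3 of the lipid genes. Txnrd1 lost its call without Normal replicate 3 (adjusted p = 0.0713), Prdx1 without Normal replicates 2 or 3 or NMO+CL replicates 1 or 2 (adjusted p 0.0665 to 0.122), Fasn without Normal replicate 3 or NMO+CL replicate 2 (adjusted p 0.0501 to 0.0512), Soat1 without NMO+CL replicate 2 (adjusted p = 0.062) and Abcg1 without Normal replicates 1 or 3 (adjusted p 0.065 to 0.0853). Against NMO, Ucp2 gave a log2 fold change of 0.96 (adjusted p = 0.0484) and Lpcat2 -0.87 (adjusted p = 0.0496).

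Of 63 lysosomal genes, 4 were called higher and 6 lower. Ctsc was at 265, 247 and 306 CPM in Normal, 629, 671 and 401 in NMO and 917, 1035 and 671 in NMO+CL. Cathepsin C, which activates other proteases, rose (log2 fold change of 1.68 with adjusted p = 0.000114). Gusb, which breaks down glycans, rose as well (log2 fold change of 1.33 with adjusted p = 0.000875). Cd63 measured 225, 250.4 and 228 CPM in Normal, 319.7, 382 and 164 in NMO and 428, 541 and 797 in NMO+CL. The membrane protein Cd63 was higher in each NMO+CL library than in any other (log2 fold change of 1.33 with adjusted p = 0.00437). Laptm5, among the most abundant genes that fell, was at 2889.8, 3549 and 3168 CPM in Normal, 2389, 2171 and 2677 in NMO and 1788, 1904 and 2431 in NMO+CL (log2 fold change of -0.65 with adjusted p = 0.0149). Ctsf (log2 fold change of -1.06 with adjusted p = 0.00558), Lgmn (log2 fold change of -1.30 with adjusted p = 0.0216) and Arsb (log2 fold change of -1.23 with adjusted p = 0.0245) are lysosomal hydrolases. Without NMO+CL replicate 3 the higher count was 7, and the lower count was 2 or 3 without Normal replicates 1, 2 or 3, NMO+CL replicate 2 or NMO+CL replicate 3. Laptm5 lost its call without Normal replicates 2 or 3 or NMO+CL replicates 1 or 2 (adjusted p 0.0513 to 0.0897), Lgmn without Normal replicates 1 or 3 or NMO+CL replicates 2 or 3 (adjusted p 0.0594 to 0.0928) and Arsb without Normal replicates 1 or 3 or NMO+CL replicates 2 or 3 (adjusted p 0.0683 to 0.14).

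The list of genes that mark microglia in degenerating tissue had 30 tested members, 6 called higher and 5 lower. Cst7 lay at 1.91, 0.602 and 1.18 CPM in Normal, 5.03, 9.34 and 3.36 in NMO and 21, 17.8 and 15.4 in NMO+CL. Cst7, an inhibitor of cathepsins, rose from a level near 0 in Normal (log2 fold change of 3.86 with adjusted p = 0.002). Lpl, Lilrb4a, Fth1 and Cd63 belong to this list and are given above, and Apoe rose by 0.93 (adjusted p = 0.0225). Cadm1 read 261, 199 and 244 CPM in Normal, 240.3, 235 and 185 in NMO and 100.2, 81.5 and 105 in NMO+CL. Cadm1, an adhesion molecule, was lower than in both other groups (log2 fold change of -1.30 with adjusted p = 0.00052, against NMO -1.21 with adjusted p = 0.00504). Cd9 (-1.19) and Timp2 (-0.93) fell (adjusted p = 0.0213 and 0.00844). Spp1, osteopontin, was not called (log2 fold change of 1.64 with adjusted p = 0.222). Of 32 genes of repair and matrix, 4 were called higher and 2 lower. Adam8 stood at 0.637, 3.31 and 0.505 CPM in Normal, 19.6, 11 and 4.48 in NMO and 27.7, 39.9 and 13.6 in NMO+CL. Adam8 is a membrane protease of activated leukocytes (log2 fold change of 4.16 with adjusted p = 0.00181). Pdgfb was at 176, 98.7 and 248 CPM in Normal, 187, 222 and 33.5 in NMO and 34, 16.4 and 24.7 in NMO+CL. Pdgfb, a growth factor for pericytes, was low in all NMO+CL libraries and near them in NMO replicate 3 (log2 fold change of -2.80 with adjusted p = 0.00172). The other rises were Fn1 (2.45, adjusted p = 0.0218), Tgfbi (1.13, adjusted p = 0.0248) and Adamtsl4 (3.34, adjusted p = 0.037). Adamtsl4 had 44, 1 and 3 reads in Normal, 0, 0 and 1 in NMO and 111, 255 and 128 in NMO+CL (adjusted p = 0.00415 against NMO). The higher count of the repair list was 1 or 2 without any 1 Normal library, NMO+CL replicate 1 or NMO+CL replicate 2. Apoe lost its call without Normal replicates 1 or 2 or NMO+CL replicates 2 or 3 (adjusted p 0.074 to 0.124), Cd9 without Normal replicates 1 or 3 (adjusted p 0.0628 to 0.115), Timp2 without Normal replicate 2 or NMO+CL replicate 2 (adjusted p 0.0553 to 0.0587), Fn1 without Normal replicates 1 or 3 or NMO+CL replicates 1 or 2 (adjusted p 0.0593 to 0.0876), Tgfbi without any 1 Normal library or NMO+CL replicates 1 or 2 (adjusted p 0.073 to 0.13) and Adamtsl4 without Normal replicates 2 or 3 or NMO+CL replicate 2 (adjusted p 0.102 to 0.218). Repair genes called lower numbered 1 without Normal replicate 2 or NMO+CL replicate 2. Against NMO, Pdgfb gave a log2 fold change of -2.56 (adjusted p = 0.0155). Adam8 moved to a log2 fold change of 5.52 without Normal replicate 2 and Adamtsl4 to 6.26 without Normal replicate 1.

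Genes of adhesion and motility numbered 46, with 3 called higher and 4 lower. Inf2 measured 0.637, 0 and 0 CPM in Normal, 4.27, 0.958 and 7.52 in NMO and 20.6, 53.3 and 17.1 in NMO+CL. Inf2, a formin that builds and cuts actin filaments, had 4 reads in Normal replicate 1 and none in the other Normal libraries (log2 fold change of 7.04 with adjusted p = 0.000426). Myo1e (log2 fold change of 1.59 with adjusted p = 0.00697) is a myosin of phagocytic cups, and Tln1 (log2 fold change of 0.58 with adjusted p = 0.0392) links integrins to actin. Cass4 lay at 15.5, 23 and 15.1 CPM in Normal, 4.65, 17 and 4.16 in NMO and 0.875, 0.486 and 2.08 in NMO+CL. Cass4, an adaptor of focal adhesions, fell (log2 fold change of -3.94 with adjusted p = 0.00324). Selplg and Cd9 are given above, and Rhob fell by 0.98 on the log2 scale with overlapping groups (adjusted p = 0.0218). Of 40 genes of Wnt signalling, 1 was called higher, the cyclin Ccnd2 (log2 fold change of 1.76 with adjusted p = 0.0338), and 3 lower, Bcl9l (-1.0, adjusted p = 0.0371), Ppp3ca (-0.63, adjusted p = 0.0408) and Wls (-0.84, adjusted p = 0.0481), a share near that over all genes. Without NMO+CL replicate 3, 6 motility genes were called higher, and without Normal replicate 3, 2 were called lower. Without any 1 Normal library, NMO replicate 1, NMO+CL replicate 1 or NMO+CL replicate 2, at most 1 Wnt gene was called lower. Tln1 lost its call without any 1 Normal library, NMO replicate 1 or NMO+CL replicates 2 or 3 (adjusted p 0.0646 to 0.126), Rhob without Normal replicate 3 or NMO+CL replicates 1 or 2 (adjusted p 0.0716 to 0.172), Ccnd2 without any 1 Normal library or NMO+CL replicate 2 (adjusted p 0.0513 to 0.205), Bcl9l without Normal replicates 1 or 2, NMO replicate 1 or NMO+CL replicates 1 or 2 (adjusted p 0.0526 to 0.166), Ppp3ca without any 1 Normal library, NMO replicate 1 or any 1 NMO+CL library (adjusted p 0.0546 to 0.193) and Wls without any 1 Normal library, NMO replicate 1 or NMO+CL replicates 1 or 2 (adjusted p 0.0684 to 0.224). Wnt genes called higher numbered 0 without any 1 Normal library or NMO+CL replicate 2 and 2 without NMO replicates 2 or 3 or NMO+CL replicate 3. Inf2 moved to a log2 fold change of 6.36 without NMO+CL replicate 2 and Cass4 to -4.67 without NMO+CL replicate 3. No read is left in the remaining Normal libraries for Inf2 without Normal replicate 1, so no fold is given there.

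Cell cycle genes numbered 69, with 7 called higher and 1 lower. Mcm7 read 18.2, 21.7 and 10.6 CPM in Normal, 44.3, 71.7 and 48.7 in NMO and 51.1, 57.3 and 79.7 in NMO+CL. Mcm7, a subunit of the helicase that opens DNA for replication, overlapped between NMO and NMO+CL (log2 fold change of 1.90 with adjusted p = 0.00123). Timeless stood at 1.27, 2.26 and 0.505 CPM in Normal, 18, 7.66 and 17.6 in NMO and 22.2, 12.5 and 23.2 in NMO+CL (log2 fold change of 3.81 with adjusted p = 0.00108). Timeless holds the replication fork together, and Pola1 is the polymerase that primes it (log2 fold change of 1.94 with adjusted p = 0.00767). Further helicase subunits, Mcm5 (1.79, adjusted p = 0.0271) and Mcm6 (2.07, adjusted p = 0.0369), were called. The inhibitor Cdkn1b fell (log2 fold change of -1.03 with adjusted p = 0.0392). Cdkn1a, also an inhibitor of the cycle, and the cyclin Ccnd2, both given above, were among the 7 called higher. Of 33 genes of the BCL2 family and cell death, Mcl1 (log2 fold change of 1.02 with adjusted p = 0.00166), Bcl2 (log2 fold change of 1.41 with adjusted p = 0.0156) and Bcl2a1a (log2 fold change of 1.15 with adjusted p = 0.0298), which keep cells alive, were called higher, and Bcl2l11, which encodes the killer BIM, lower (log2 fold change of -0.98 with adjusted p = 0.0215). These 4 calls are 12.1% of the list, beside 4.79% called higher and 4.43% called lower over all tested genes. Bcl2a1a has near-identical copies. Of 26 immediate early genes, 4 were called higher, namely Klf4, Socs3, Ier3 (log2 fold change of 1.66 with adjusted p = 0.000852, against NMO 1.39 with adjusted p = 0.0132) and Ier2 (log2 fold change of 1.21 with adjusted p = 0.0354), and 1, Rhob, lower. The cell cycle count was 4 without Normal replicate 3 or NMO+CL replicate 2. For BCL2 it was 1 without NMO+CL replicate 2 and without either of Normal replicates 1 and 2, and 5 without NMO+CL replicate 3, and for immediate early genes 2 without Normal replicate 1 or 2. Mcm5 lost its call without Normal replicates 1 or 3 or NMO+CL replicate 1 (adjusted p 0.104 to 0.127), Mcm6 without Normal replicates 2 or 3 or NMO+CL replicates 1 or 2 (adjusted p 0.0603 to 0.239), Cdkn1b without any 1 Normal library, NMO replicate 1 or any 1 NMO+CL library (adjusted p 0.052 to 0.213), Bcl2 without Normal replicates 1 or 2 or NMO+CL replicate 2 (adjusted p 0.062 to 0.0869), Bcl2a1a without any 1 Normal library or NMO+CL replicates 1 or 2 (adjusted p 0.0507 to 0.203), Bcl2l11 without Normal replicates 1 or 3 or NMO+CL replicates 2 or 3 (adjusted p 0.0561 to 0.11) and Ier2 without any 1 Normal library, NMO replicate 1 or NMO+CL replicates 1 or 2 (adjusted p 0.0536 to 0.172). Immediate early genes called lower numbered 0 without Normal replicate 3 or NMO+CL replicate 2 and 2 without NMO+CL replicate 3. Timeless moved to a log2 fold change of 4.40 without Normal replicate 2, Mcm5 to 2.38 without Normal replicate 2 and Mcm6 to 2.68 without Normal replicate 1 and 1.22 without NMO+CL replicate 1.

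Among the largest rises were genes that belong to none of the groups above or that are known from other myeloid cells. Sema6b was at 0.637, 1.2 and 1.68 CPM in Normal, 4.02, 8.26 and 6.56 in NMO and 46.3, 41.3 and 30.4 in NMO+CL. Sema6b, a transmembrane semaphorin, was above NMO too (log2 fold change 5.05, SE 0.55, adjusted p = 2.47e-05, against NMO 2.64 with adjusted p = 0.00835). AB124611 measured 0.159, 2.71 and 3.53 CPM in Normal, 1.51, 8.26 and 14.7 in NMO and 29.2, 59.1 and 33.5 in NMO+CL (log2 fold change of 4.24 with adjusted p = 0.00257). Pilrb1 lay at 0.319, 0.903 and 0.168 CPM in Normal, 5.28, 4.43 and 0 in NMO and 26.3, 34.3 and 5.28 in NMO+CL (log2 fold change of 5.49 with adjusted p = 0.00604). Pilrb1, an activating paired receptor, has close relatives. Saa3 read 0, 0 and 1.35 CPM in Normal, 1.26, 12.6 and 2.88 in NMO and 74.1, 106 and 15.4 in NMO+CL. Saa3 is an acute phase protein of macrophages and neutrophils, and NMO+CL replicate 3 was far below the other NMO+CL libraries (log2 fold change of 7.18 with adjusted p = 0.000467). Il1r2 stood at 0, 0 and 1.68 CPM in Normal, 2.51, 1.8 and 2.4 in NMO and 23.1, 118 and 6.41 in NMO+CL. Il1r2 is the decoy receptor of interleukin 1 (log2 fold change of 6.46 with adjusted p = 0.00134). Trem1 was at 0.637, 0 and 0 CPM in Normal, 2.26, 1.44 and 2.72 in NMO and 22.6, 30.3 and 7.37 in NMO+CL (log2 fold change of 6.44 with adjusted p = 0.00118). Lrg1 measured 3.03, 1.66 and 2.02 CPM in Normal, 7.04, 3.95 and 2.08 in NMO and 32.5, 70.1 and 12.5 in NMO+CL (log2 fold change of 4.09 with adjusted p = 0.000842). In Il1r2, Trem1 and Lrg1 the highest library was NMO+CL replicate 2. Il1r2 lost its call without NMO+CL replicate 2 (adjusted p = 0.0633). Against NMO, Saa3 gave a log2 fold change of 3.53 (adjusted p = 0.042), Il1r2 4.45 (adjusted p = 0.0252) and Lrg1 3.13 (adjusted p = 0.0172). Saa3 moved to a log2 fold change of 6.59 without Normal replicate 2, Il1r2 to 5.86 without Normal replicate 2 and 4.70 without NMO+CL replicate 2 and Lrg1 to 3.33 without NMO+CL replicate 2. No read is left in the remaining Normal libraries for Saa3 without Normal replicate 3 and for Il1r2 without Normal replicate 3 and for Trem1 without Normal replicate 1, so no fold is given there. At most 3 reads of Pilrb1 are left in 1 group, and the ratio of reads between the groups was 89.8 (exact 95% interval 30.5 to 437) without Normal replicate 2.

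Because several of these are also expressed by neutrophils, the markers of other cells are given beside them. The summed level of 13 neutrophil markers was 553.6, 41.5 and 47.5 CPM in the Normal libraries, 279, 117.7 and 403.8 in NMO and 1395, 290.2 and 551.5 in NMO+CL. None of the 11 tested was called, S100a8 giving log2 fold change of 1.96 with adjusted p = 0.127 and S100a9 log2 fold change of 2.03 with adjusted p = 0.133. All 11 had a positive fold change, and the median was 1.04. Without Normal replicate 1, the Normal library with the highest sum, 4 of the 11 were called higher and the median of the list was 3.78. S100a8 then had a log2 fold change of 4.35 with adjusted p = 0.000821 and S100a9 a log2 fold change of 4.57 with adjusted p = 0.00095, and Lcn2, given above, was also among the 4. Elane, the elastase of neutrophil granules, had reads in Normal replicate 1 and NMO+CL replicates 1 and 3 and in no other library. The part of neutrophil RNA in the rises of Il1r2, Trem1, Lrg1 and Saa3 was not tested.

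Markers of monocytes summed to 39.9 to 69.8 CPM in Normal and 73.5 to 111.3 CPM in NMO+CL, and none of 12 tested was called, although 9 had a positive fold change and the median was 1.02. Ccr2, the receptor that brings monocytes into tissue, was among the negative ones (log2 fold change of -1.25 with adjusted p = 0.318). Erythroid markers summed to 391.4 to 661.3 CPM in Normal and 851.9 to 980.6 in NMO+CL without overlap. None of 5 was called (Hbb-bs, log2 fold change of 1.14 with adjusted p = 0.382), but 2 were called higher without NMO replicate 2, whose erythroid sum was 12.2 CPM, and Hbb-bs then had a log2 fold change of 1.14 with adjusted p = 0.00338. Markers of border macrophages summed to 160 to 309 CPM in Normal and 224.6 to 409.6 in NMO+CL, none of 6 called. Lymphocyte markers summed to 65.01 to 82.6 CPM in Normal and 19.9 to 25.4 CPM in NMO+CL, and Il7r made up most of the Normal sum. Klrd1, a receptor of natural killer and dendritic cells, was without a read in all 3 NMO+CL libraries, a fall of at least 13.1-fold (adjusted p = 0.0206). Astrocyte markers summed to 176.2 to 221.9 CPM in Normal and 89 to 128.6 in NMO+CL. The astrocyte glutamate transporter Slc1a3 was called lower (log2 fold change of -0.88 with adjusted p = 0.027), and Slc1a2 had 1 read in all NMO+CL libraries against 165 in Normal, a ratio of 169 with an exact 95% interval from 29.8 to 6698 for counting error only. By library, Slc1a2 had 120, 0 and 45 reads in Normal and 1, 0 and 0 in NMO+CL, so Normal replicate 2 overlapped NMO+CL. The ratio was 68.9 (exact 95% interval 11.8 to 2781) without Normal replicate 1 and 260.2 (exact 95% interval 46.1 to 10340.0) without Normal replicate 2, and without NMO+CL replicate 1 no read is left in NMO+CL. Aqp4, the target of the injected antibody, had low and overlapping levels (log2 fold change of 0.59 with adjusted p = 0.777). Cnp, of oligodendrocytes, was lower (log2 fold change of -1.23 with adjusted p = 0.0258) and Kdr, of endothelium, higher (log2 fold change of 1.37 with adjusted p = 0.0418), while 1 of 4 oligodendrocyte, none of 5 neuronal and 1 of 8 vascular markers were called. Oligodendrocyte markers summed to 84.58 to 137.2 CPM in Normal and 35.75 to 68.86 in NMO+CL without overlap. Neuronal markers summed to 212.7, 22.12 and 29.61 CPM in the Normal libraries and 21.01 to 36.67 in NMO+CL. The vascular markers had a median log2 fold change of -0.37, 3 of 8 were positive, and their summed level overlapped at 92.04 to 106.3 CPM in Normal and 88.1 to 128.3 in NMO+CL. Klrd1 lost its call without Normal replicates 2 or 3 or NMO+CL replicate 2 (adjusted p 0.0585 to 0.0877), Slc1a3 without Normal replicates 2 or 3 or NMO+CL replicates 1 or 2 (adjusted p 0.0841 to 0.132), Slc1a2 without Normal replicates 1 or 3 or NMO+CL replicates 2 or 3 (adjusted p 0.0671 to 0.196), Cnp without Normal replicates 1 or 2 or NMO+CL replicates 1 or 2 (adjusted p 0.0735 to 0.13) and Kdr without any 1 Normal library, NMO replicate 1 or NMO+CL replicates 1 or 2 (adjusted p 0.0546 to 0.178). Against NMO, Kdr gave a log2 fold change of 1.86 (adjusted p = 0.0272).

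The largest falls were of genes at modest levels. Sdhd lay at 14, 12.8 and 36.8 CPM in Normal, 27, 30.6 and 6.24 in NMO and 1.02, 0.486 and 0 in NMO+CL. Sdhd, a membrane anchor of succinate dehydrogenase, was near 0 in every NMO+CL library (log2 fold change of -5.32 with adjusted p = 0.000767, against NMO -5.33 with adjusted p = 0.00415). Tmc7 read 28.8, 28.3 and 31.3 CPM in Normal, 20.5, 5.27 and 18.6 in NMO and 1.02, 2.27 and 0 in NMO+CL (log2 fold change of -4.73 with adjusted p = 0.000934). Upk1b stood at 70.9, 79.3 and 109 CPM in Normal, 39.5, 49.1 and 33.1 in NMO and 11.5, 4.7 and 0.16 in NMO+CL (log2 fold change of -3.97 with adjusted p = 0.000715). Upk1b is a tetraspanin listed among homeostatic genes. Gprasp2 was at 40.8, 72.1 and 41.9 CPM in Normal, 12.8, 38.4 and 28.8 in NMO and 5.84, 4.37 and 6.57 in NMO+CL. Gprasp2, which sorts receptors for degradation, was lower than in NMO too (log2 fold change -3.20, SE 0.44, adjusted p = 0.000176, against NMO -2.25 with adjusted p = 0.0119). Ccng2 measured 61.7, 54.9 and 116 CPM in Normal, 46.9, 34.6 and 35.1 in NMO and 20.9, 4.54 and 1.28 in NMO+CL. Ccng2 is a cyclin of resting cells, and its NMO+CL libraries spread widely (log2 fold change of -3.11 with adjusted p = 0.00342). The others were Hsf2bp (-3.82, adjusted p = 0.0015), Arhgef10l (-3.80, adjusted p = 0.00259), Rnf180 (-3.79, adjusted p = 0.00713), Sema6d (-3.62, adjusted p = 0.0207), Ypel2 (-3.42, adjusted p = 0.0311), Pank4 (-3.40, adjusted p = 0.0291), Fam89a (-3.39, adjusted p = 0.00349), Tnfrsf17 (-3.17, adjusted p = 0.0315) and Fam131a (-3.10, adjusted p = 0.0137). Sema6d lost its call without Normal replicate 2 or NMO+CL replicate 2 (adjusted p 0.0677 to 0.124), Ypel2 without any 1 Normal library or NMO+CL replicates 1 or 3 (adjusted p 0.0654 to 0.112), Pank4 without Normal replicates 1 or 3 or NMO+CL replicates 2 or 3 (adjusted p 0.0718 to 0.109), Tnfrsf17 without any 1 Normal library or NMO+CL replicates 1 or 2 (adjusted p 0.0546 to 0.12) and Fam131a without Normal replicate 1 (adjusted p = 0.098). Against NMO, Tmc7 gave a log2 fold change of -3.73 (adjusted p = 0.0187), Upk1b -2.88 (adjusted p = 0.0239) and Hsf2bp -2.78 (adjusted p = 0.0413). Sdhd moved to a log2 fold change of -4.67 without Normal replicate 3, Tmc7 to -5.76 without NMO+CL replicate 2, Upk1b to -5.14 without NMO+CL replicate 1, Ccng2 to -4.73 without NMO+CL replicate 1, Hsf2bp to -4.67 without NMO+CL replicate 3, Arhgef10l to -4.39 without NMO+CL replicate 3, Rnf180 to -4.50 without NMO+CL replicate 2, Sema6d to -4.64 without NMO+CL replicate 1, Ypel2 to -4.81 without NMO+CL replicate 2, Pank4 to -4.18 without NMO+CL replicate 1, Tnfrsf17 to -5.17 without NMO+CL replicate 3 and Fam131a to -4.22 without NMO+CL replicate 2. At most 3 reads of Sdhd are left in 1 group, and the ratio of reads between the groups was 86 (exact 95% interval 29.2 to 419) without NMO+CL replicate 1.

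Among the most abundant genes called higher were Hsp90ab1, Hspa5, Calr, Fth1, Ncl, Nfkbia and Hk2, given above, with Rrbp1, which binds ribosomes to the endoplasmic reticulum (log2 fold change of 0.77 with adjusted p = 0.00288), Ptpn1, a tyrosine phosphatase that dampens cytokine and insulin signals (log2 fold change of 1.24 with adjusted p = 0.000139), and the repetitive small RNA Rn4.5s (log2 fold change of 1.13 with adjusted p = 0.0258). Ptpn1 lay at 523, 593 and 464 CPM in Normal, 829.8, 849 and 939 in NMO and 1159, 1370.4 and 1190.1 in NMO+CL, with no overlap between the groups. Among the most abundant called lower were Cst3, Cx3cr1, Sparc, Serinc3 (log2 fold change of -0.55 with adjusted p = 0.0156), Laptm5, Selplg, Fcrls and Marcks. Rgs2 read 1792, 2120.1 and 2443 CPM in Normal, 1603, 1375 and 1339.9 in NMO and 951, 909 and 1271 in NMO+CL. Rgs2 shortens signals of G protein-coupled receptors (log2 fold change of -1.02 with adjusted p = 0.00124). Tmsb4x stood at 2838, 4044 and 5538 CPM in Normal, 4249, 3901 and 3581 in NMO and 2640.5, 1771 and 1188 in NMO+CL. Tmsb4x encodes thymosin beta 4, which holds actin monomers, and has many copies (log2 fold change of -1.15 with adjusted p = 0.00684). Rn4.5s lost its call without Normal replicates 2 or 3 or NMO+CL replicates 2 or 3 (adjusted p 0.0569 to 0.133), Serinc3 without Normal replicates 2 or 3 or NMO+CL replicate 2 (adjusted p 0.0538 to 0.0713) and Tmsb4x without Normal replicate 3 (adjusted p = 0.056). Against NMO, Tmsb4x gave a log2 fold change of -1.07 (adjusted p = 0.0393).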

How the data were processed

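RNA of sorted microglia pooled from 3 mice per library was made into QuantSeq 3′ libraries and sequenced as single reads. The authors aligned the reads with Bowtie2 to mm10, keeping unique and multiple alignments, and the deposited files hold raw counts per gene symbol. The annotation used for counting and the use of strand are not given in the sources used here, so reads of near-identical copies and of antisense genes may be shared between symbols. Each file had 23282 entries. Entries of the 35 duplicated symbols were summed, which left 23238 symbols, of which 22197 matched GENCODE M21 for coordinates. Genes were kept with edgeR's filter (minimum count 10, minimum total 15), which left 12292.

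The test was edgeR's quasi-likelihood F-test (edgeR 4.0.16, limma 3.58.1, R 4.3.3) with TMM scaling, 1 coefficient per group and all 9 libraries sharing 1 estimate of the spread (common biological coefficient of variation 0.519). CPM were computed here from the counts and the scaled library sizes. Adjusted p-values are Benjamini-Hochberg over all tested genes, for each contrast. The exact permutation tests used SciPy 1.17.1. Alternatives were library totals, RLE factors, no filter, DESeq2 1.42.0, limma-voom, a fit of the 6 libraries alone, a test against 1.5-fold, the study's rule of a 1.5-fold change with unadjusted p under 0.05, leaving out each library, and the replicate number as a block. The code was tested on simulated data.

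The members and the gene lists were chosen with earlier results of these data known. Genes are named by rule: the 15 largest rises and the 15 largest falls (calls whose libraries did not overlap and averaged 50 reads or more), the 10 most abundant called genes in each direction, up to 4 called members of each list per direction with the smallest adjusted p, further list members where roles are described, and the sort markers. Some genes that this rule names are not reported here. Promoter windows came from RefSeq. No library pair of 1 group agreed within sampling noise (chi-square per degree of freedom 21.9 to 51.1), so none was taken for 1 library deposited more than once. Libraries made separately from the same cells would also differ by more than sampling noise. Counting error is small for genes above a few CPM at these depths, and intervals cover counting error only.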

Additional observations from a re-analysis of the deposited data

How the results depend on the processing

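The 589 genes called higher and 545 called lower became 218 and 200 when tested against a 1.5-fold change and 1217 and 1255 under the study's rule of a 1.5-fold change with unadjusted p under 0.05. Leaving out 1 library gave 335 to 641 genes higher and 303 to 622 lower. Under the 6 other alternatives with a different scaling, filter, tool or set of libraries, the counts were 551 to 795 higher and 456 to 781 lower, and a fit with the replicate block gave 572 and 552. Replicate numbers did not pair the samples (correlation of the deviations 0.0261, 0.00813 and -0.0148 for numbers 1, 2 and 3). Of the 250 genes named (249 in the DESeq2 fit and in the fit of the 6 libraries), none changed direction in any of these fits. The test against 1.5-fold took 111 of them past the threshold to no call, leaving out NMO+CL replicate 2 took 75, and leaving out Normal replicate 3 took 68. With limma-voom 22 lost and 4 gained a call, and with library totals alone 15 and 0. With the replicate block the numbers were 11 and 3, and with the 6 libraries alone 8 and 2. The cause was not tested, except that a stricter null makes fewer calls by construction. Gene lists with no call in a direction gained at most 2 calls there without 1 library, apart from the neutrophil markers, of which 4 of 11 were called higher without Normal replicate 1. With 3 libraries per group, genes of a few CPM have wide errors, and a change that was not called is not shown to be absent.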
